A study of Mus musculus with 18 samples.

Results

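The comparison described here is that of T helper 17 (Th17) cultures lacking the glucose transporter GLUT3 with wild-type Th17 cultures, both grown without acetate. It used 6 of the 18 RNA-seq libraries of the study, 3 labelled GLUT3KO and 3 labelled WT, chosen by their labels alone. Both groups had a C57BL/6 background. GLUT3KO cells carried Slc2a3-fl/fl Cd4-cre, a floxed Slc2a3 gene cut by a Cre recombinase driven from Cd4 regulatory sequence, so that deletion takes place during T cell development, in cells that will become CD4+ as well as CD8+ T cells. WT cells were labelled wild type, with no mention of a Cre or of floxed alleles. All cultures started from naive T cells stimulated through CD3 and CD28 with Th17-polarizing cytokines for 48 h, and the untreated cultures then received no acetate. Before harvest all cells were restimulated for 5 h with PMA and ionomycin, which bypass the T cell receptor, in the presence of brefeldin A and monensin, which block secretion. The other 12 libraries were the same genotypes with acetate for 24 h (20 mM in the sample protocols, 10 mM in the series text) and cells lacking ATP-citrate lyase (ACLYKO, Acly-fl/fl Cd4-cre) without and with acetate. They entered the fit to estimate the spread. Whether replicates are separate mice is not in the labels. The p-values therefore measure the spread between these libraries alone, which may be technical.

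GLUT3 is a high-affinity facilitative glucose carrier, one of a family in which GLUT1, encoded by Slc2a1, is the carrier best known from activated T cells. Glucose taken up by such carriers feeds glycolysis, and the citrate made from it in mitochondria is exported and cleaved by ATP-citrate lyase into the cytosolic acetyl-CoA that is used for lipid synthesis and histone acetylation. Th17 cells are CD4+ helper cells that secrete IL-17A and IL-17F and help to defend barrier tissues, and they are also known for driving autoimmune inflammation. Their cytokine genes are transcribed when a resting effector cell is triggered again, which was the state measured here.

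The deposited values were TPM, a share of all transcripts corrected for gene length. Reads recovered from them came to 18697197 to 28774750 in the 6 libraries (median 24685425). At an exon length of 2000 bases 1 read amounted to 0.0355 to 0.0719 TPM. Across genes, Spearman correlations between libraries were 0.957 to 0.992 for the 6 pairs of one genotype and 0.893 to 0.947 for the 9 pairs of different genotypes, genes not being independent replicates. The main axis of variation within groups, a principal component, held 63.6% of the within-group variance over the 18 libraries. On it WT replicate 1 (35.6) and GLUT3KO replicate 1 (31.9) stood apart from WT replicates 2 and 3 (-15.4 and -20.2) and GLUT3KO replicate 2 (-36), with GLUT3KO replicate 3 between them, near 0 (4.1). Its gene loadings correlated with GC content (Spearman rho -0.411 across genes) and exon length (0.35), and what it reflects was not tested. One alternative fit leaves out 5 libraries (WT replicate 1, GLUT3KO replicates 1 and 3, and replicate 1 of both ACLYKO groups) and another the 2 GLUT3KO libraries among these, called the 5 libraries and the 2 GLUT3KO libraries below. The choice was made with earlier results of these data known. GLUT3KO replicate 3 does not itself stand apart on this axis, its score being close to that of GLUT3KO acetate replicate 1 (2.22), which was kept.

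The targeted gene was lower in every library labelled GLUT3KO. Slc2a3 (chr6:122727809-122802363, GRCm38.p6) stood at 14.4, 19.8 and 19 TPM in WT and 4.0, 6.31 and 8.2 TPM in GLUT3KO libraries, and the groups did not overlap. This is a 2.87-fold lower mean (log2 change -1.41 ± 0.28 SE, limma adjusted p = 0.00118), and part of the signal remained, which whole-gene values cannot assign to undeleted cells or to exons outside the deleted part. Below, values given as 3 and 3 are replicates 1 to 3 of WT followed by replicates 1 to 3 of GLUT3KO, a mean is over 3 libraries and is followed by its SD. T cell identity genes were present in all 6 libraries, with Trac at 581, 561 and 703 TPM in WT and 998, 1050.2 and 914 TPM in GLUT3KO libraries. Of the CD8 chains Cd8a reached at most 1.29 TPM, and Cd8b1 was 11.2, 12.4 and 12.7 TPM in WT and 9.69, 11 and 10.8 TPM in GLUT3KO libraries. Markers of other lineages were low. The summed levels of 7 B cell markers were 2.61 to 3.53 TPM in WT and 1.6 to 1.67 TPM in GLUT3KO libraries. Those of 13 myeloid and dendritic cell markers were 1.91 to 3.41 and 4.52 to 4.92 TPM, with C1qa, C1qb and Siglech at 0. The 7 NK and gamma-delta T cell markers summed to 3.67 to 6.10 TPM in WT and 45.4 to 120 TPM in GLUT3KO libraries, and this is given again beside the cytotoxic genes.

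Differences were tested with limma on log2(TPM + 1) for 14229 of 45703 genes, those that reached a TPM of 1 in 3 or more of the 18 libraries, at an adjusted p under 0.05. Of these, 4753 genes (33.4%) differed between untreated GLUT3KO and WT cells, 3548 (24.9%) higher and 1205 (8.47%) lower in GLUT3KO. The 3 libraries of each genotype did not overlap in 45.5% of all tested genes and in 4458 of the 4753 genes that passed. Without the 5 libraries 7578 genes passed, and without the 2 GLUT3KO libraries among them, which leaves 1 GLUT3KO library assumed to vary like the other groups, 2408 did. Large changes were mostly rises: 1648 genes rose and 300 fell by at least 1 on the log2 scale, 294 rose and 19 fell by at least 2, and 63 rose and 4 fell by at least 3. Genes lower by at least 2 summed to 7326 TPM in WT and 763.5 TPM in GLUT3KO cells, of which Il2 made up 5412 ± 1233 TPM and 434 ± 96.4 TPM. Genes higher by at least 2 went from 2638 to 19130 TPM. A gene under 1 TPM in each untreated WT library reached the filter only through other libraries, which favours rises. Il5, Tnfsf10, Dcn and Bcl2l11 below are such genes, among others. The excess of rises depended on scaling. Higher genes made up 74.6% of the calls on TPM as deposited, 54.9% after median-ratio scaling, 51.8% after quantile normalization, 56% with voom on recovered reads and 46.6% after a correction for GC content and length. The median change of all tested genes was 0.17 as deposited and -0.01, -0.04, -0.07 and -0.06 in these alternatives. Changes near 0.2 on the log2 scale are therefore not given a direction below, and the median of each list below is to be read against 0.17. Likewise the share of a list that rose or fell is to be read against 24.9% and 8.47% of all tested genes. Median-ratio scaling, quantile normalization, voom and the GC and length correction are called the 4 scalings below.

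**Figure D1:**
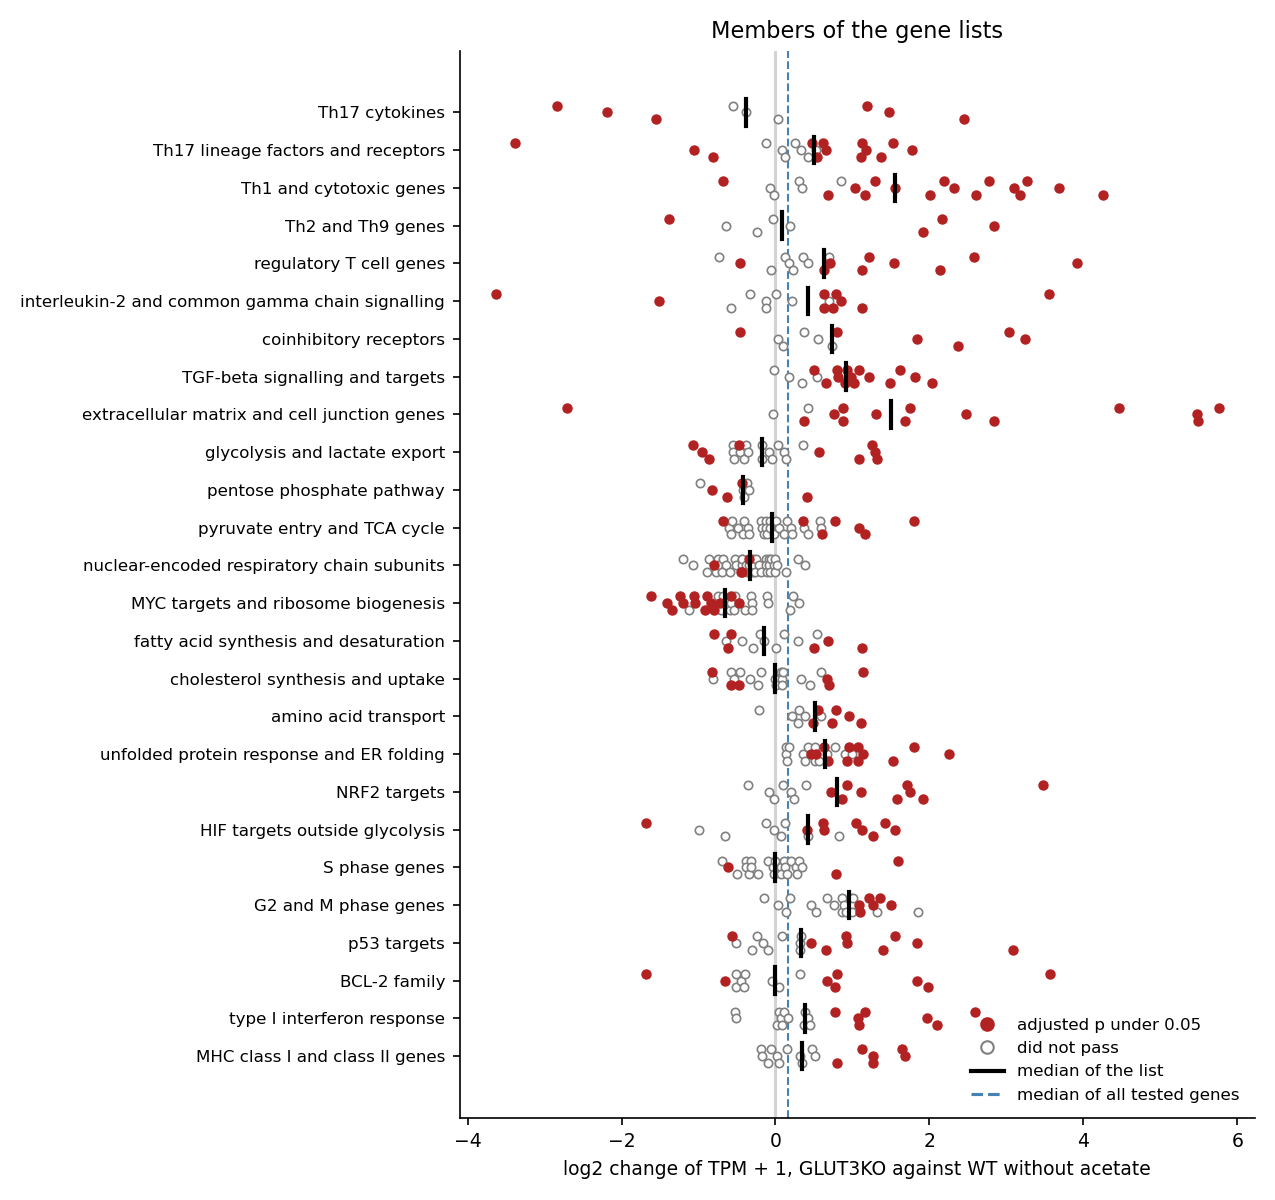
Log2 change of TPM + 1 (GLUT3KO against WT, without acetate, x axis) for each tested member of 26 gene lists (rows). Filled red points passed at an adjusted p under 0.05, open points did not, black bars are list medians and the dashed line is the median of all tested genes (0.17). The medians of the Th1 and cytotoxic list (1.55) and of the matrix and junction list (1.5) lie farthest to the right, and those of the MYC and ribosome biogenesis list (-0.66) and the pentose phosphate list (-0.43) farthest to the left. Members nearly silent in WT are shown only where other libraries brought them past the filter, which favours rises, as in the matrix list.

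Among the effector cytokines of Th17 cells, members moved in both directions in GLUT3KO cells. Of 9 tested Th17 cytokine genes 3 fell (Il17a, Il17f and Csf2) and 3 rose (Il21, Il22 and Il24), with a median change of -0.38. Falls in the Th17 cytokine list numbered 5 after median-ratio scaling. Il17a, the signature cytokine of the lineage, stood at 613, 599 and 703 TPM in WT and 91, 192 and 152 TPM in GLUT3KO libraries, without overlap (4.4-fold lower, log2 change -2.19 ± 0.39 SE, limma adjusted p = 0.000525). Il17f, its close homologue and neighbour on chromosome 1, was uniform within each genotype at 867, 669.9 and 749.8 TPM in WT and 106, 104 and 105 TPM in GLUT3KO libraries. That is a 7.24-fold lower mean (log2 change -2.84 ± 0.22 SE, limma adjusted p = 2.65e-07), and the lowest WT library exceeded the highest GLUT3KO library several times over. Csf2, which encodes the myeloid growth factor GM-CSF, was 424, 334 and 270.5 TPM in WT and 157, 87.2 and 110.0 TPM in GLUT3KO libraries (log2 change -1.55 ± 0.28 SE, limma adjusted p = 0.000576).

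The genes that rose include those of cytokines that act on B cells and epithelia. Il21, a helper cytokine for B cells that also acts back on Th17 cells, was high in both genotypes at 1705, 993 and 815 TPM in WT and 2608, 2294 and 2741 TPM in GLUT3KO libraries. It rose (log2 change 1.19 ± 0.21 SE, limma adjusted p = 0.000487), with WT replicate 1 nearest to the GLUT3KO range. Il22, which acts on epithelial cells, was at 0.365, 1.06 and 1.82 TPM in WT and 5.97, 17.4 and 9.24 TPM in GLUT3KO libraries. It rose 10.03-fold from a level close to the limit of the filter (log2 change 2.46 ± 0.35 SE, limma adjusted p = 7.23e-05). Il24, a relative of IL-10, went from 2.57 ± 0.789 to 9.09 ± 2.94 TPM (mean ± SD, n = 3 each; log2 change 1.48 ± 0.26 SE, limma adjusted p = 0.000483). Ccl20, the chemokine bound by CCR6, overlapped between genotypes (1163, 817 and 753 TPM in WT and 849, 1186 and 756 TPM in GLUT3KO libraries, limma adjusted p = 0.964). Il10 was lower in each GLUT3KO library (16.8, 38.3 and 31.5 against 41, 42.1 and 39 TPM) and did not pass (log2 change -0.56 ± 0.25 SE, limma adjusted p = 0.103). Tnf was likewise lower in each GLUT3KO library without passing (log2 change -0.38 ± 0.24 SE, limma adjusted p = 0.252). Tnf passed without the 5 libraries (limma adjusted p = 0.0274), Il10 and Tnf under at least 1 of the other scalings (0.0216 to 0.0435) and Il10 without GLUT3KO replicate 2 (0.0267).

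Il2 lost more TPM than any other gene tested. IL-2 is the growth factor that activated T cells make for themselves and their neighbours, and its message was among the most abundant in WT cells at 4017, 6356 and 5861 TPM. In GLUT3KO cells it was 425, 534 and 342 TPM, a 12.5-fold lower mean with no overlap (log2 change -3.63 ± 0.32 SE, limma adjusted p = 7.52e-07). In the opposite direction, Ifng, the Th1 cytokine interferon-gamma, went from 34.2, 59.5 and 38.9 TPM to 554, 1138 and 938 TPM (19.8-fold higher, log2 change 4.26 ± 0.37 SE, limma adjusted p = 6.36e-07). The promoters of Il2, Il17f and Ifng are shown because these genes are triggered by the same restimulation and moved in different directions. Each window runs from 250 bases before to 50 bases after a RefSeq start on GRCm38.p6, on the gene's strand. The start is the outer bound of the gene in the deposited table for all windows shown except that of Il17f, whose RefSeq start lies 1004 bases inside that bound. Capitals mark matches to GGAAA, the core of the binding site of the calcium-activated factor NFAT, on either strand (TTTCC is its complement). They lie at chr3:37125905-37126204 (minus strand), chr1:20784221-20784520 (minus strand) and chr10:118440796-118441095 (plus strand).
Il2: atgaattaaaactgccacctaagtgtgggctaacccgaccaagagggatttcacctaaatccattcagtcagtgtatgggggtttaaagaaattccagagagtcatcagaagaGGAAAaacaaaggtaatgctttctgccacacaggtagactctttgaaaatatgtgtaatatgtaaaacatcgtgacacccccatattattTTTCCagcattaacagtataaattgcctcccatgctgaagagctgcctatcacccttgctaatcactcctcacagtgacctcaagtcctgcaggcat
Il17f: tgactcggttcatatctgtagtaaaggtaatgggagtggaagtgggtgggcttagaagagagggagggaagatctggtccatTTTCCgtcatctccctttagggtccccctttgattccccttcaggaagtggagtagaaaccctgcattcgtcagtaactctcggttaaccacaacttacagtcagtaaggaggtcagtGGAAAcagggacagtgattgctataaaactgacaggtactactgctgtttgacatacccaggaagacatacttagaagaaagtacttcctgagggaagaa
Ifng: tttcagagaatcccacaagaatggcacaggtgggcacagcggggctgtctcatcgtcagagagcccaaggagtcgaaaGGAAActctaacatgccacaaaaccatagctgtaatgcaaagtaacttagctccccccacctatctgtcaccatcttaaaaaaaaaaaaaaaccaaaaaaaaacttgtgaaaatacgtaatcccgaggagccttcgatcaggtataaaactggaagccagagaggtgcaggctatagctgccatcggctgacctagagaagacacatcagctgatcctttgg
The Il2 window holds 2 such matches, beginning 137 and 47 bases before the start, the Il17f window 2 (168 and 50 bases before it) and the Ifng window 1 (172 bases before it). So short a motif is common: 63.9% of the windows of tested genes hold it, as do 6 of 7 Th17 cytokine windows. Genes that fell and genes that rose both hold it.

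**Figure D2:**
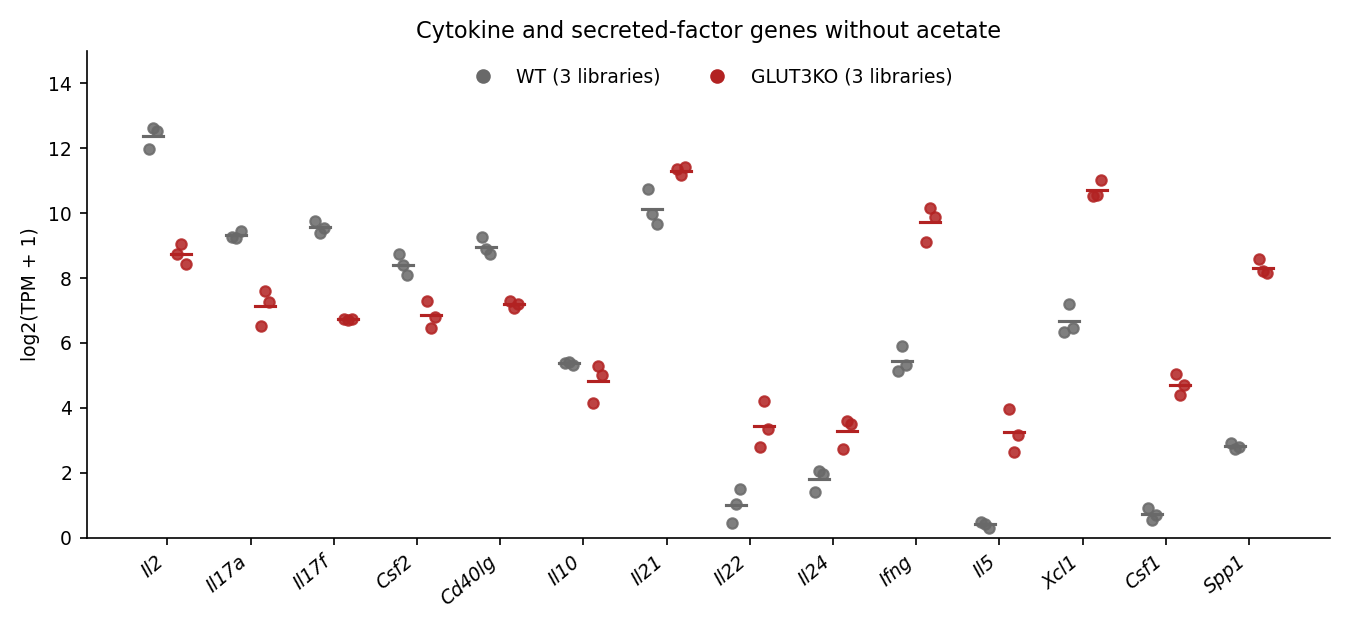
Level on the log2(TPM + 1) scale (y axis) of 14 cytokine and secreted-factor genes in each untreated library; grey points are WT, red points GLUT3KO, and bars are the means of 3 libraries on that scale. Il2, Il17a, Il17f, Csf2 and Cd40lg are lower in all 3 GLUT3KO libraries, and Ifng, Xcl1, Csf1 and Spp1 are higher in all 3.

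Most factors that define the lineage did not fall with Il17a and Il17f. Rora, a nuclear receptor that promotes Th17 differentiation, rose from 5.65 ± 1.17 to 14 ± 1.45 TPM (log2 change 1.18 ± 0.21 SE, limma adjusted p = 0.00043). Maf, which drives Il10 and other Th17 genes, rose 3.48-fold, with 45.5, 38.4 and 34.3 TPM in WT and 125, 150.0 and 137 TPM in GLUT3KO libraries (log2 change 1.78 ± 0.22 SE, limma adjusted p = 2.15e-05). Hif1a, a hypoxia factor known to favour Th17 differentiation, rose (log2 change 1.12 ± 0.3 SE, limma adjusted p = 0.0104). Its limma adjusted p was 0.0551 without WT replicate 2. Batf, an AP-1 factor needed for Th17 cells, fell from 127 ± 16.7 to 71.8 ± 6.53 TPM (log2 change -0.81 ± 0.12 SE, limma adjusted p = 9.39e-05). Irf4, its partner, overlapped (1469.5, 1042 and 1017 and 1512, 1208 and 1463 TPM, limma adjusted p = 0.296). Hif1a lost the call without the 2 GLUT3KO libraries (limma adjusted p = 0.224), Rora and Batf after the GC and length correction (0.109 to 0.126) and Hif1a under at least 1 of the other scalings (0.0594).

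Receptors that feed the Th17 programme moved apart. Il23r, the receptor for the cytokine that stabilizes the lineage, fell to 5.42 ± 1.12 TPM in GLUT3KO cells from 12.2 ± 1.06 TPM in WT cells (log2 change -1.05 ± 0.15 SE, limma adjusted p = 7.19e-05). Both chains of the IL-6 receptor rose: Il6ra was 25.4, 17.9 and 20.1 TPM in WT and 55.1, 62.4 and 69.4 TPM in GLUT3KO libraries (log2 change 1.52 ± 0.25 SE, limma adjusted p = 0.000225). Il6st, the shared signalling chain gp130, was 19.1, 10.9 and 10.8 and 37.7, 28.8 and 41.5 TPM (log2 change 1.37 ± 0.21 SE, limma adjusted p = 0.000159). Cd5l, a lipid regulator associated with less pathogenic Th17 cells, was nearly lost. It stood at 15.2, 22.4 and 24.7 TPM in WT and 1.08, 1.05 and 0.988 TPM in GLUT3KO libraries, the steepest fall of the list (19.99-fold, log2 change -3.39 ± 0.27 SE, limma adjusted p = 2.77e-07). In all, 10 of 20 tested lineage factors and receptors rose and 3 fell (median 0.5). Rises in the lineage list numbered 5 without the 2 GLUT3KO libraries and 5 to 6 under the 4 scalings.

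Genes of the IL-2 family of receptors and signals changed around the lower Il2. Of 16 tested members 7 rose and 2 fell (median 0.42). Il7r, the receptor for the survival factor IL-7 and a marker of resting T cells, was 11.1, 8.32 and 8.92 TPM in WT and 113, 117 and 133 TPM in GLUT3KO libraries. Its groups were far apart (12.8-fold higher, log2 change 3.55 ± 0.14 SE, limma adjusted p = 2.91e-10), the smallest adjusted p of the list. Stat5a, which relays IL-2 and IL-7 signals to the nucleus, went the other way at 71.5, 76 and 73 TPM in WT and 24.8, 23.3 and 27.4 TPM in GLUT3KO libraries (log2 change -1.51 ± 0.12 SE, limma adjusted p = 1.98e-07). Stat5b, its near-identical relative, was lower in each GLUT3KO library but did not pass (log2 change -0.34 ± 0.19 SE, limma adjusted p = 0.19). Among receptor chains, Il2rg rose from 550.3 ± 65.2 to 848 ± 12.5 TPM (log2 change 0.63 ± 0.11 SE, limma adjusted p = 0.000602). Il15ra rose from 2.01 ± 0.118 to 5.56 ± 0.473 TPM (log2 change 1.12 ± 0.12 SE, limma adjusted p = 3.93e-06), and Il2rb did not differ beyond its spread (log2 change 0.00 ± 0.4 SE, limma adjusted p = 0.998). Cish, a feedback inhibitor induced by STAT5, overlapped between genotypes (47.9, 56.7 and 57.4 and 43.4, 54.2 and 51.3 TPM). Rises in the IL-2 family list numbered 3 after the GC and length correction. Stat5b passed without the 5 libraries (limma adjusted p = 0.0322), after the GC and length correction (0.000186) and under at least 1 of the other scalings (0.00421 to 0.00776).

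Th1 and cytotoxic genes were mostly higher: 15 of 21 tested members rose and 1 fell (median 1.55). Falls in the Th1 list numbered 0 without the 2 GLUT3KO libraries, 0 without a filter or in the fit of the 6 libraries and 0 without GLUT3KO replicate 1, GLUT3KO replicate 2, WT replicate 1 or WT replicate 3. The member that fell was Runx3, a factor of cytotoxic and Th1 cells (limma adjusted p = 0.0363; 0.104 without GLUT3KO replicate 1, 0.118 without GLUT3KO replicate 2, 0.134 without WT replicate 1 and 0.0839 without WT replicate 3). Tbx21, which encodes T-bet, the factor that specifies Th1 cells, was 4.46, 3.84 and 4.6 TPM in WT and 14.3, 23.3 and 24.9 TPM in GLUT3KO libraries, with no overlap (4.85-fold, log2 change 2.01 ± 0.25 SE, limma adjusted p = 2.05e-05). Both chains of the IL-18 receptor rose. Il18r1 went from 1.71 ± 0.391 to 15.8 ± 4.05 TPM (log2 change 2.61 ± 0.21 SE, limma adjusted p = 3.84e-07) and Il18rap from 2.11 ± 0.343 to 13.5 ± 4.09 TPM (log2 change 2.19 ± 0.2 SE, limma adjusted p = 1.14e-06). Gzmb, the granule protease granzyme B, was 31.7, 13.9 and 10.02 TPM in WT and 157, 168 and 428 TPM in GLUT3KO libraries. GLUT3KO replicate 3 was the highest and WT replicate 1 the highest of its group (log2 change 3.69 ± 0.45 SE, limma adjusted p = 1.77e-05). Prf1, the pore-forming perforin, was 1.45, 1.8 and 1.07 and 13.6, 18.6 and 30.4 TPM (log2 change 3.1 ± 0.31 SE, limma adjusted p = 3.03e-06). Gzma, another granule protease, was 3.26, 3.3 and 2.5 and 13.6, 35.5 and 37.5 TPM (log2 change 2.77 ± 0.36 SE, limma adjusted p = 3.71e-05). Fasl, a death ligand, rose from 1.47 ± 0.149 to 5.13 ± 0.864 TPM (log2 change 1.3 ± 0.19 SE, limma adjusted p = 0.00011). Stat4, which relays IL-12, overlapped between genotypes (26.9, 19.5 and 21.9 and 17.2, 20.4 and 27.9 TPM, limma adjusted p = 0.831), as did Il12rb1 (172, 191 and 184 and 156, 191 and 194 TPM). Granzyme genes are close copies of each other, and the counting of reads shared among them is not stated here. Runx3 lost the call without the 2 GLUT3KO libraries (limma adjusted p = 0.0637) and with another filter, pseudocount or set of libraries in the fit (0.0598 to 0.1).

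Markers of NK and gamma-delta T cells moved with this list. Trdc, the constant segment of the delta chain of the T cell receptor, was 3.39, 2.47 and 1.99 TPM in WT and 34.6, 65.4 and 87.9 TPM in GLUT3KO libraries (log2 change 4.06 ± 0.32 SE, limma adjusted p = 2.52e-07). Klrk1, an NK receptor also found on activated cytotoxic T cells, was 1.87, 1.99 and 1.15 and 8.08, 15.2 and 19.8 TPM (log2 change 2.46 ± 0.28 SE, limma adjusted p = 9.33e-06). Trgc1, a gamma chain segment, was 0.724, 0.351 and 0.412 and 1.92, 5.0 and 11.7 TPM (log2 change 2.03 ± 0.4 SE, limma adjusted p = 0.0011). All 3 tested members of the 7 markers rose, the other 4 stayed under the filter, and the summed level ran from 3.67 to 6.10 TPM in WT and from 45.4 to 120 TPM in GLUT3KO libraries. Trgc1, under 1 TPM in each untreated WT library, reached the filter only through other libraries, which favours a rise. In GLUT3KO libraries Trdc, Klrk1, Trgc1, Prf1, Gzma and Gzmc were all lowest in replicate 1 and highest in replicate 3. Gzmb, Tbx21, Tnfsf10, Cd160, Tnfrsf9 and Bmf had the same order, and what the order of 3 libraries reflects was not tested. Other genes had other orders, among them Ifng, which was highest in replicate 2. The part of these cells in the cytotoxic result was not tested, and in cultures measured in bulk fewer or more cells of a type and less or more RNA per cell cannot be told apart.

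Genes of other helper lineages changed one by one. Gata3, the Th2 factor, was 1.9, 1.68 and 1.79 TPM in WT and 15.6, 7.6 and 12.7 TPM in GLUT3KO libraries (log2 change 2.17 ± 0.22 SE, limma adjusted p = 2.89e-06). Il5, a Th2 cytokine for eosinophils, was 0.407, 0.355 and 0.232 and 14.5, 5.24 and 7.96 TPM (log2 change 2.84 ± 0.27 SE, limma adjusted p = 2.04e-06). Il4 and Il13, the other classical Th2 cytokines, overlapped (2.67, 5.27 and 3.54 and 3.07, 3.6 and 4.26 TPM for Il4, 6.53, 6.93 and 6.6 and 10.7, 5.85 and 7.51 TPM for Il13, limma adjusted p = 0.958 and 0.631). Of 8 tested Th2 and Th9 genes 3 rose and 1 fell (median 0.08). Falls in the Th2 list numbered 2 after quantile normalization, 2 with voom and 2 with a pseudocount of 0.1. The member that fell was Ccr4, a homing receptor (from 33.1 ± 4.85 to 12 ± 1.28 TPM, log2 change -1.39 ± 0.16 SE, limma adjusted p = 9.03e-06). Foxp3, the factor of regulatory T cells, stayed near 1 TPM in both genotypes (0.668, 0.694 and 0.869 and 1.37, 1.18 and 1.43 TPM) and did not pass (log2 change 0.42 ± 0.21 SE, limma adjusted p = 0.136). Of 17 tested genes associated with regulatory T cells 8 rose and 1 fell (median 0.63). Falls in the regulatory list numbered 0 without the 2 GLUT3KO libraries, 0 after quantile normalization and 0 without GLUT3KO replicate 1, WT replicate 1 or WT replicate 3. Nt5e (CD73), which makes adenosine, was 21.6, 15.2 and 22.4 and 271, 348 and 315 TPM (log2 change 3.92 ± 0.21 SE, limma adjusted p = 4.27e-09). Tnfrsf9 (4-1BB), a costimulatory receptor, was 76.4, 85.5 and 83.8 and 303, 361 and 437 TPM (log2 change 2.14 ± 0.16 SE, limma adjusted p = 1.45e-07). Ctla4, the member that fell, did so by little (log2 change -0.46 ± 0.15 SE, limma adjusted p = 0.0301), and its limma adjusted p was 0.137 without GLUT3KO replicate 1, 0.0985 without WT replicate 1 and 0.0512 without WT replicate 3. Ctla4 lost the call without the 5 libraries (limma adjusted p = 0.12), without the 2 GLUT3KO libraries (0.349) and under at least 1 of the other scalings (0.198). Ctla4 lost the call with another filter, pseudocount or set of libraries in the fit (limma adjusted p = 0.102). Foxp3 passed with another filter, pseudocount or set of libraries in the fit (limma adjusted p = 0.0431).

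Chemokine ligand genes moved in both directions. Cxcl2 and Cxcl3, ligands of the neutrophil receptor CXCR2, fell: Cxcl3 was 107, 104 and 95.3 TPM in WT and 10.7, 7.28 and 10.02 TPM in GLUT3KO libraries (log2 change -3.33 ± 0.29 SE, limma adjusted p = 7.89e-07). Cxcl2 was 43.7, 40.4 and 26.3 and 3.31, 2.39 and 3.72 TPM (log2 change -3.17 ± 0.32 SE, limma adjusted p = 3e-06). Xcl1, which attracts cross-presenting dendritic cells, rose 16.3-fold, from 79.9, 146 and 86.7 TPM to 1468, 1522 and 2094 TPM (log2 change 4.04 ± 0.33 SE, limma adjusted p = 4.24e-07). Ccl1, the ligand of CCR8, was 5.2, 8.63 and 4.36 and 51.7, 88.6 and 76.8 TPM (log2 change 3.39 ± 0.36 SE, limma adjusted p = 5.16e-06). Ccl3, a ligand of CCR1, rose from 465 ± 26.1 to 1510.4 ± 198 TPM (log2 change 1.69 ± 0.18 SE, limma adjusted p = 5.79e-06). Of 12 tested ligands 6 rose and 2 fell (median 0.66).  Among 12 tested chemokine receptors 4 rose, among them Ccr1, Ccr2 and Cxcr6, and 2 fell, Ccr4 and S1pr1 (median 0.11).  S1pr1 is a receptor for exit from lymph nodes (4.66, 6.9 and 6.06 and 1.22, 2.06 and 2.18 TPM, log2 change -1.29 ± 0.21 SE, limma adjusted p = 0.000244). Ccr6, the receptor typical of Th17 cells, overlapped (41.2, 56.8 and 45.8 and 64.3, 42.7 and 50.1 TPM, limma adjusted p = 0.647).

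Ligands and receptors of contact between cells also changed. Cd40lg, the helper signal for B cells and dendritic cells, fell 3.48-fold, with 614, 474 and 425 TPM in WT and 155, 134 and 146 TPM in GLUT3KO libraries (log2 change -1.78 ± 0.16 SE, limma adjusted p = 7.8e-07). Of 11 tested TNF superfamily ligands 5 rose and 1 fell (Cd40lg; median 0.44). Falls in the TNF list numbered 2 without the 5 libraries and 2 after median-ratio scaling. Tnfsf10, the death ligand TRAIL, was 0.303, 0.79 and 0.518 and 3.32, 5.69 and 8.58 TPM (log2 change 2.1 ± 0.25 SE, limma adjusted p = 1.49e-05). Tnfsf9, the ligand of 4-1BB, rose from 26.1 ± 0.682 to 62.9 ± 8.59 TPM (log2 change 1.23 ± 0.18 SE, limma adjusted p = 8.7e-05). Of 11 coinhibitory genes 5 rose and 1 fell (Ctla4; median 0.74). Rises in the coinhibitory list numbered 8 without the 5 libraries. Falls in the coinhibitory list numbered 0 without the 5 libraries, 0 without the 2 GLUT3KO libraries, 0 after quantile normalization, 0 in the fit of the 6 libraries and 0 without GLUT3KO replicate 1, WT replicate 1 or WT replicate 3. Havcr2 (TIM-3), a receptor found on Th1 and exhausted T cells, was 1.7, 0.867 and 0.835 TPM in WT and 16.9, 13.8 and 28.6 TPM in GLUT3KO libraries (log2 change 3.24 ± 0.32 SE, limma adjusted p = 2.76e-06). Cd160, another inhibitory receptor, was 0.615, 1.03 and 0.673 and 8.48, 14.9 and 18.9 TPM (log2 change 3.03 ± 0.26 SE, limma adjusted p = 5.44e-07). Cd274 and Pdcd1lg2, the 2 ligands of PD-1, rose as well (log2 change 1.84 ± 0.19 SE, limma adjusted p = 4.2e-06 and log2 change 2.38 ± 0.21 SE, limma adjusted p = 9.51e-07). Pdcd1 itself overlapped (112, 139.5 and 156 and 127, 141 and 146 TPM).

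Subunits of the T cell receptor complex did not move together. Cd3e and Cd3g, signalling chains of the complex, rose (from 140.2 ± 10.1 to 277 ± 19.8 TPM and from 178 ± 11.8 to 355 ± 49 TPM, limma adjusted p = 0.000317 and 6.12e-05). Cd3d overlapped (221, 337 and 297 and 175, 364 and 249.5 TPM). Cd247, the zeta chain that carries most of the signalling motifs, fell to 28.4, 27.3 and 41.8 TPM from 96.2, 67.2 and 69.7 TPM (log2 change -1.24 ± 0.24 SE, limma adjusted p = 0.00102). Trat1, an adaptor of the same complex, was 6.65, 11 and 9.02 TPM in WT and 0.862, 0.831 and 0.915 TPM in GLUT3KO libraries. It fell to a like level in all 3 (log2 change -2.38 ± 0.21 SE, limma adjusted p = 9.51e-07). Cd28, the main costimulatory receptor, rose from 898 ± 71.3 to 1851 ± 90.6 TPM (log2 change 1.04 ± 0.13 SE, limma adjusted p = 2.3e-05). Cd4 itself was lower in each GLUT3KO library without passing (log2 change -0.29 ± 0.15 SE, limma adjusted p = 0.15). Of the 20 tested members 6 rose and 3 fell (median 0.39). Rises in the receptor complex list numbered 13 without the 5 libraries. Cd4 passed without the 5 libraries (limma adjusted p = 0.0442), after the GC and length correction (0.00704) and under at least 1 of the other scalings (0.000711 to 0.0334).

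Transcription factors induced by activation were likewise mixed, with 10 of 22 tested higher and 4 lower (median 0.42). Myc, the growth factor-induced regulator of metabolism and ribosome production, was 425, 302 and 348 TPM in WT and 211, 118 and 174 TPM in GLUT3KO libraries. WT replicate 1 and GLUT3KO replicate 1 were the highest of their groups, and the groups did not overlap (log2 change -1.12 ± 0.21 SE, limma adjusted p = 0.000833). Fosl1, an AP-1 subunit, rose from 33.2 ± 4.52 to 101 ± 49.6 TPM (log2 change 1.48 ± 0.27 SE, limma adjusted p = 0.000643). Nr4a1, an early response gene of the T cell receptor, fell from 15.8 ± 3.02 to 8.99 ± 0.946 TPM (log2 change -0.74 ± 0.15 SE, limma adjusted p = 0.00177). The NF-kappaB subunits Nfkb1 and Relb overlapped (414, 290.4 and 301 and 319, 236 and 329 TPM for Nfkb1). Rises in the activation list numbered 2 without the 2 GLUT3KO libraries, 2 to 6 under the 4 scalings, 5 without GLUT3KO replicate 3 or WT replicate 2 and 6 without WT replicate 3. Falls in the activation list numbered 7 without the 5 libraries, 7 after the GC and length correction and 2 without GLUT3KO replicate 2, WT replicate 1, WT replicate 2 or WT replicate 3. Among 13 genes of naive and memory cells 4 rose and 3 fell (median 0.37). Rises in the naive list numbered 2 without the 2 GLUT3KO libraries and 2 after the GC and length correction. Falls in the naive list numbered 5 after the GC and length correction. Klf3, a repressor linked to quiescence, was 3.62, 3.4 and 3.56 and 30.2, 21.6 and 25.3 TPM (log2 change 2.55 ± 0.16 SE, limma adjusted p = 2.5e-08). Tcf7, a factor of naive and memory cells, fell from 27.7 ± 4.99 to 15.1 ± 3.07 TPM (log2 change -0.84 ± 0.18 SE, limma adjusted p = 0.00228). Nfkb1 passed without the 5 libraries (limma adjusted p = 0.0344), after the GC and length correction (0.00102) and under at least 1 of the other scalings (0.011).

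Signalling by TGF-beta, one of the cytokines used to induce Th17 cells, is relayed by a pair of receptors to SMAD proteins. In this list 14 of 18 tested members rose and none fell (median 0.92). Falls in the TGF-beta list numbered 2 after the GC and length correction. Tgfbr1, the signalling receptor, was 31.3, 32.3 and 27.1 TPM in WT and 138, 123 and 119 TPM in GLUT3KO libraries (log2 change 2.03 ± 0.15 SE, limma adjusted p = 1.52e-07). Tgfbr2, which binds the ligand, rose from 23.6 ± 2.09 to 45.8 ± 3.27 TPM (log2 change 0.93 ± 0.12 SE, limma adjusted p = 4.06e-05). Tgfbr3, a coreceptor, rose from 5.87 ± 0.14 to 18.3 ± 0.673 TPM (log2 change 1.49 ± 0.16 SE, limma adjusted p = 6.2e-06). Among the SMADs, Smad3 was 16, 11.1 and 12.8 and 52.2, 48.4 and 45.8 TPM (log2 change 1.81 ± 0.21 SE, limma adjusted p = 9.3e-06). Smad4, the common partner, rose from 29.3 ± 1.42 to 52 ± 2.1 TPM (log2 change 0.81 ± 0.1 SE, limma adjusted p = 2.83e-05). Smad2 overlapped (16.4, 12.9 and 15.1 and 15.6, 16.9 and 17.7 TPM) and was lower after the GC and length correction (limma adjusted p = 0.0378). Smad7, an inhibitor, overlapped too (7.01, 8.1 and 7.68 and 6.95, 7.29 and 8.22 TPM). Integrins that release active TGF-beta were also higher: Itgav rose from 27.4 ± 4.23 to 86 ± 13.4 TPM (log2 change 1.62 ± 0.2 SE, limma adjusted p = 1.92e-05). Tgfb1, the ligand, overlapped (154, 102 and 108 and 176, 116 and 172 TPM, limma adjusted p = 0.345). Smad4 lost the call after the GC and length correction (limma adjusted p = 0.0773). Smad7 passed after the GC and length correction (limma adjusted p = 0.0129).

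Genes of the extracellular matrix and of cell junctions, most of them nearly silent in WT cells, held the largest rises on the log2(TPM + 1) scale. Of 16 tested members 13 rose and 1 fell (median 1.5). Falls in the matrix list numbered 2 after the GC and length correction. Another 15 of the 31 listed genes did not reach the filter, among them Col1a1 and Col3a1, the fibrillar collagens of fibroblasts. Members under 1 TPM in each untreated WT library, such as Col4a1, Col4a2 and Dsp, reached the filter only through other libraries. The filter thus favours rises, both in the share of this list that rose and in its median. Col4a1 and Col4a2, the paired chains of basement membrane collagen, were 0.93, 0.374 and 0.425 and 0.775, 0.282 and 0.452 TPM in WT, and 55.9, 57.3 and 100.3 and 79.7, 55.1 and 115 TPM in GLUT3KO libraries. They rose 123-fold and 165-fold (log2 change 5.48 ± 0.21 SE, limma adjusted p = 2.58e-10, and log2 change 5.76 ± 0.22 SE, limma adjusted p = 2.58e-10), with replicate 3 highest for both. The gene starts of the pair lie head to head on opposite strands, 21 bases apart on chromosome 8, so their promoter windows overlap in part. The rest of the Col4a1 window (chr8:11312777-11313076, minus strand) is not shown. The Col4a2 window (chr8:11312555-11312854, plus strand) is shown with the 78 bases that it shares with the Col4a1 window in capitals.
Col4a2: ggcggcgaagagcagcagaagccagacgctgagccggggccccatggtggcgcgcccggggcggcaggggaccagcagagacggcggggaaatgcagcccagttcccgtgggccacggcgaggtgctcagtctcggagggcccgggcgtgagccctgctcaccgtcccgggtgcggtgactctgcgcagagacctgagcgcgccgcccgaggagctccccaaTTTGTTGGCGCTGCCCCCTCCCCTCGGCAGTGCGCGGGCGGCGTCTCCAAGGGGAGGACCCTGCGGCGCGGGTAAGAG
Reads from the overlapping ends of such a pair can be told apart only by strand, and the strand setting of the counting is not stated here. The AP-1 motif TGANTCA, searched on both strands, was in none of the 13 windows of this list and in 6.06% of the 9360 windows of tested genes. So few windows cannot show a difference from that share.

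Other genes of the group were not restricted to collagen. Spp1, which encodes osteopontin, a matrix protein also secreted by T cells, was 6.56, 5.64 and 6.0 TPM in WT and 383, 295 and 281 TPM in GLUT3KO libraries (52.7-fold, log2 change 5.49 ± 0.17 SE, limma adjusted p = 3.29e-11). Dsp, the desmosome protein desmoplakin, was 0.612, 0.634 and 0.845 and 51.8, 24.4 and 38.1 TPM (log2 change 4.46 ± 0.36 SE, limma adjusted p = 3.68e-07). Lamc1, a laminin chain, rose from 47.9 ± 17.9 to 344 ± 87.9 TPM (log2 change 2.84 ± 0.27 SE, limma adjusted p = 1.68e-06). Itga2, an integrin that binds collagen, was 1.85, 0.69 and 0.75 and 13.3, 9.34 and 8.9 TPM (log2 change 2.48 ± 0.2 SE, limma adjusted p = 4.1e-07). Lad1, a filament protein of epithelial anchoring, was the member that fell (35.5, 30.4 and 32.3 and 5.63, 2.15 and 5.48 TPM, log2 change -2.71 ± 0.22 SE, limma adjusted p = 4.23e-07). The 7 fibroblast markers summed to 3.55 to 9.18 TPM in WT and 13.4 to 18.2 TPM in GLUT3KO libraries, nearly all of it Lum. The rise of Lum was lost without any 1 of 4 libraries (limma adjusted p = 0.0602 without GLUT3KO replicate 1, 0.101 without GLUT3KO replicate 2, 0.056 without GLUT3KO replicate 3 and 0.141 without WT replicate 1). Dcn, another fibroblast marker, rose from a low level (0.0594, 0.0432 and 0.0338 TPM in WT and 2.18, 1.65 and 1.5 TPM in GLUT3KO libraries; log2 change 1.4 ± 0.14 SE, limma adjusted p = 2.4e-06), a call kept in every alternative run for it. Col3a1 was at 0, and 8 epithelial markers summed to 1.67 to 2.95 and 3.75 to 5.35 TPM with Krt5, Krt14 and Krt8 at 0. Epcam, one of these, rose from 1.0 ± 0.202 to 2.93 ± 0.576 TPM (log2 change 0.97 ± 0.16 SE, limma adjusted p = 0.000296), also in every alternative run. The part of such cells in the result was not tested. Lum lost the call without the 2 GLUT3KO libraries (limma adjusted p = 0.103), after the GC and length correction (0.0946) and under at least 1 of the other scalings (0.101 to 0.313). Lum lost the call with another filter, pseudocount or set of libraries in the fit (limma adjusted p = 0.0573 to 0.221).

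Beyond the lists, the largest rises joined signalling genes to genes that are nearly silent in WT cells. Trpm6, Csf1, Dpysl3, Ifi211, H19 and Mir675 were under 1 TPM in each untreated WT library. They reached the filter only through other libraries, which favours a rise. Map2k6, a kinase that activates p38, was 2.82, 2.14 and 2.21 TPM in WT and 96.7, 72.1 and 87 TPM in GLUT3KO libraries (log2 change 4.66 ± 0.18 SE, limma adjusted p = 2.58e-10). Trpm6, a magnesium channel with its own kinase domain, was 0.324, 0.188 and 0.304 and 40.8, 25.3 and 29.5 TPM (log2 change 4.67 ± 0.22 SE, limma adjusted p = 1.3e-09). Src, the founding member of a family of tyrosine kinases, was 0.915, 0.987 and 1.17 and 42.8, 41.4 and 46 TPM (log2 change 4.46 ± 0.22 SE, limma adjusted p = 1.93e-09). Csf1, the macrophage growth factor, was 0.905, 0.472 and 0.611 and 31.9, 20.3 and 25 TPM (log2 change 3.99 ± 0.18 SE, limma adjusted p = 1.07e-09). Foxq1, a forkhead factor, rose from 1.52 ± 0.595 to 57.2 ± 16.5 TPM (log2 change 4.52 ± 0.21 SE, limma adjusted p = 1.44e-09). Dpysl3, a cytoskeletal protein of neurons, rose from 0.181 ± 0.0777 to 25.2 ± 2.83 TPM (log2 change 4.47 ± 0.12 SE, limma adjusted p = 1.17e-11). The imprinted noncoding RNA H19 was listed at 0, 0 and 0.0621 TPM in WT and 32.7, 9.68 and 18.1 TPM in GLUT3KO libraries. From so low a level its ratio is not given, and on a scale that damps low values less it can exceed the collagen genes: with a pseudocount of 0.1 its log2 change was 7.26 against 7.13 for Col4a2. Mir675, whose hairpin lies within H19, was listed at 0 in WT and 37.9, 12.8 and 20.5 TPM in GLUT3KO libraries, so these are not separate observations. Ifi209 and Ifi211, neighbouring and similar interferon-inducible genes, were 1.22, 0.597 and 1.1 and 40.9, 37.2 and 37.8 TPM, and 0.779, 0.283 and 0.443 and 42.5, 31.2 and 29.2 TPM. How reads matching both were counted is unknown here. Of all tested protein-coding genes Vim, an intermediate filament protein, gained the most TPM (from 955 ± 221 to 2978 ± 761 TPM, log2 change 1.64 ± 0.23 SE, limma adjusted p = 6.84e-05).

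The largest falls outside the lists were smaller. Stra6, a retinol uptake receptor, was 19.2, 27 and 24 TPM in WT and 3.84, 3.74 and 3.04 TPM in GLUT3KO libraries (log2 change -2.42 ± 0.39 SE, limma adjusted p = 0.000231). Cd24a, a surface glycoprotein, was 22.9, 26 and 35.5 and 4.39, 6.0 and 6.33 TPM (log2 change -2.14 ± 0.2 SE, limma adjusted p = 1.22e-06). Nfkbid, a nuclear regulator of NF-kappaB that supports Il2 and Il17a transcription, was 90.9, 91.7 and 96.4 and 17.5, 22.6 and 22.3 TPM (log2 change -2.12 ± 0.48 SE, limma adjusted p = 0.00349). Car12, a carbonic anhydrase, fell from 8.13 ± 1.8 to 1.36 ± 0.562 TPM (log2 change -1.96 ± 0.24 SE, limma adjusted p = 1.55e-05). Timd2 met the rule for the largest falls through WT replicates 1 and 2 alone, since WT replicate 3 was at 0.546 TPM (log2 change -2.18 ± 0.8 SE, limma adjusted p = 0.0478). Its call was lost without any 1 of 5 libraries (limma adjusted p = 0.0875 to 0.211), all but WT replicate 3. Timd2 lost the call without the 5 libraries (limma adjusted p = 0.292), Nfkbid and Timd2 without the 2 GLUT3KO libraries (0.0875 to 0.27) and Timd2 under at least 1 of the other scalings (0.0505 to 0.0832). Timd2 lost the call with another filter, pseudocount or set of libraries in the fit (limma adjusted p = 0.0732 to 0.0822).

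**Figure D3:**
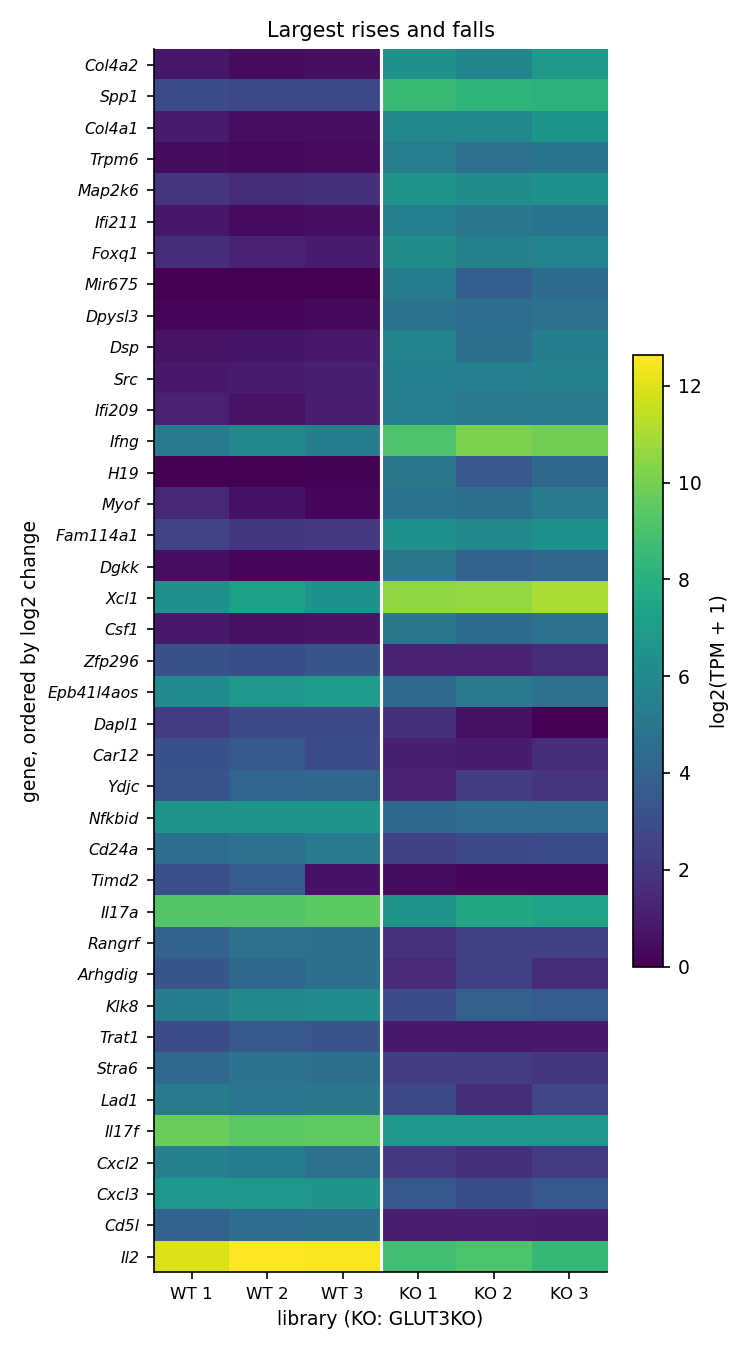
Level on the log2(TPM + 1) scale (colour) of genes with the largest rises and falls (rows, ordered by log2 change) in each untreated library (columns; KO stands for GLUT3KO). Rising genes, such as Col4a2, Spp1 and Map2k6, are dark in all 3 WT columns and bright in all 3 GLUT3KO columns, and Il2 is the brightest of the genes that fell.

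Transcripts of the pathway that GLUT3 feeds changed unevenly. Slc2a1, the gene of GLUT1, was higher in each GLUT3KO library (79.1, 77.3 and 84.1 and 118, 117 and 107 TPM) but did not pass (log2 change 0.5 ± 0.27 SE, limma adjusted p = 0.172). Slc2a6, Slc2a8 and Slc2a9, less studied relatives, overlapped or did not pass (Slc2a6 65.4, 82.8 and 75.7 and 46.3, 73.2 and 62.3 TPM). Of 5 tested transporters only Slc2a3 passed in the comparison as fitted. Because TPM corrects for length, the levels can be compared between genes: in WT cells Slc2a1 was 80.2 ± 3.51 TPM and Slc2a3 17.7 ± 2.91 TPM (mean ± SD, n = 3). Of 24 tested genes of glycolysis and lactate export 5 rose and 4 fell (median -0.18), a share of rises near that of all genes. Rises in the glycolysis list numbered 3 without the 2 GLUT3KO libraries and 3 with a minimum of 5 TPM. Falls in the glycolysis list numbered 10 without the 5 libraries, 2 without the 2 GLUT3KO libraries, 8 to 10 under the 4 scalings, 2 without a filter and 2 without GLUT3KO replicate 1, GLUT3KO replicate 3, WT replicate 2 or WT replicate 3. Slc2a1 passed without the 5 libraries (limma adjusted p = 0.00214) and with another filter, pseudocount or set of libraries in the fit (0.0268).

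Of the 24 genes 15 did not pass, so no direction is given to the pathway or to its parts. Hk1, Pfkp and Pfkm, of early steps, rose, and Eno1 and Ldha, of late steps, fell. Hk1, a hexokinase, was 91.3, 44.1 and 47.2 and 181, 94.1 and 169 TPM (log2 change 1.29 ± 0.31 SE, limma adjusted p = 0.00497), with replicate 1 highest in WT. Phosphofructokinase catalyses the committed step, and 2 of its 3 subunits rose: Pfkp was 156, 88.8 and 89.7 TPM in WT and 292, 219.9 and 309.9 TPM in GLUT3KO libraries (log2 change 1.33 ± 0.23 SE, limma adjusted p = 0.000385). Pfkm rose from 5.35 ± 0.413 to 12.8 ± 3.67 TPM (log2 change 1.08 ± 0.26 SE, limma adjusted p = 0.00527), and Pfkl overlapped. Of the bifunctional enzymes that set its activator, Pfkfb1 rose from 1.36 ± 0.147 to 4.65 ± 0.657 TPM (log2 change 1.25 ± 0.17 SE, limma adjusted p = 4.68e-05). Pfkfb3, the form with the strongest activating bias, fell from 10.9 ± 0.824 to 5.65 ± 1.57 TPM (log2 change -0.87 ± 0.23 SE, limma adjusted p = 0.00949). Ldha, which turns pyruvate into lactate, was 346, 348 and 359 TPM in WT and 166, 177 and 201 TPM in GLUT3KO libraries, with little spread in each genotype (log2 change -0.95 ± 0.18 SE, limma adjusted p = 0.000823). Aldoa, Tpi1, Gapdh, Pgk1 and Pkm, which lie between, did not pass, at log2 changes of -0.08, 0.04, -0.38, -0.18 and -0.18. Eno1 fell (log2 change -1.07 ± 0.39 SE, limma adjusted p = 0.0475), and so did Slc16a1, a lactate exporter (log2 change -0.47 ± 0.17 SE, limma adjusted p = 0.0381). Both calls were lost without any 1 of several libraries. For Eno1 the limma adjusted p was 0.183 without GLUT3KO replicate 1, 0.0758 without GLUT3KO replicate 3, 0.127 without WT replicate 2 and 0.16 without WT replicate 3. For Slc16a1 it was 0.162 without GLUT3KO replicate 1, 0.084 without GLUT3KO replicate 3, 0.109 without WT replicate 2 and 0.129 without WT replicate 3. Hk1, Eno1 and Slc16a1 lost the call without the 2 GLUT3KO libraries (limma adjusted p = 0.312 to 0.534) and Eno1 and Slc16a1 with another filter, pseudocount or set of libraries in the fit (0.0573 to 0.0799). Pkm passed without the 5 libraries (limma adjusted p = 0.00345) and under at least 1 of the other scalings (0.00892).

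**Figure D4:**
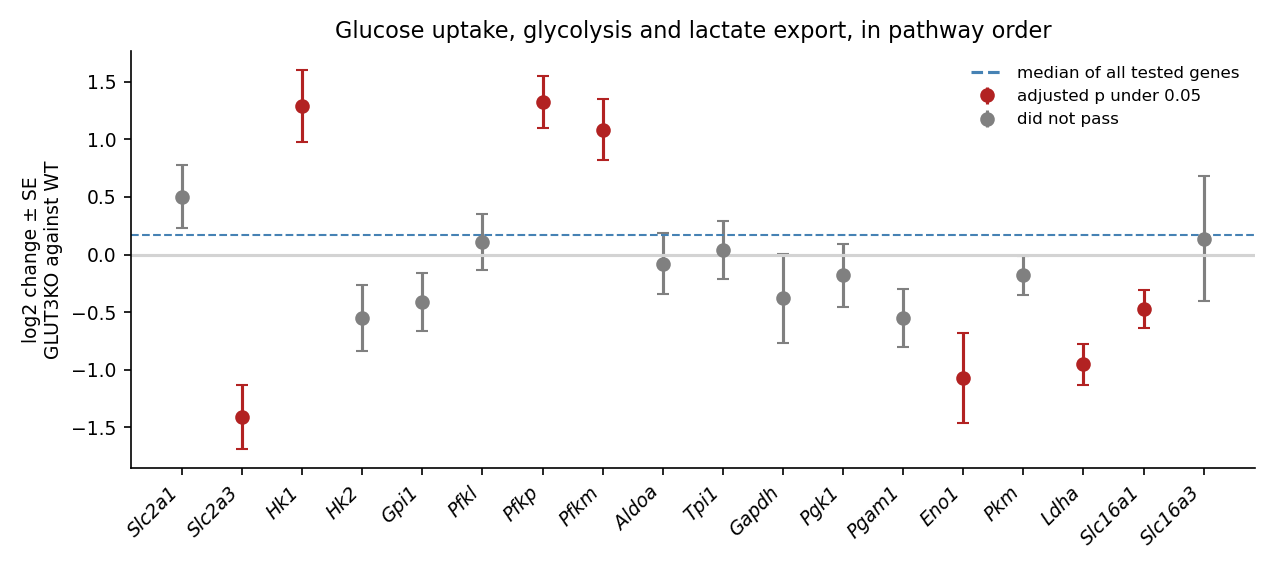
Log2 change of TPM + 1 with its SE (y axis, GLUT3KO against WT without acetate) for 18 genes of glucose uptake, glycolysis and lactate export in pathway order (x axis). Red points passed at an adjusted p under 0.05, grey points did not, and the dashed line is the median of all tested genes. Slc2a3 lies lowest (-1.41), Hk1, Pfkp and Pfkm lie above 1, and Eno1 and Ldha lie near -1.

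Of 34 genes of pyruvate entry and the TCA cycle 6 rose and 1 fell (median -0.05). Rises in the TCA list numbered 13 without the 5 libraries, 2 without the 2 GLUT3KO libraries, 3 after median-ratio scaling and 3 without GLUT3KO replicate 3 or WT replicate 2. Falls in the TCA list numbered 6 without the 5 libraries, 0 without the 2 GLUT3KO libraries, 3 to 8 under the 4 scalings and 2 without GLUT3KO replicate 2 or WT replicate 1. Regulators of pyruvate dehydrogenase with opposed actions were among the members that passed in all alternatives: Pdk2, a kinase that inhibits it, was 1.39, 0.872 and 1.75 TPM in WT and 8.34, 5.93 and 7.07 TPM in GLUT3KO libraries (log2 change 1.8 ± 0.17 SE, limma adjusted p = 1.41e-06). Pdp1, the phosphatase that activates it, was 10.2, 8.1 and 8.92 and 27.9, 18.2 and 19.7 TPM (log2 change 1.17 ± 0.15 SE, limma adjusted p = 2.34e-05). Subunits of the enzyme itself, Pdha1 and Pdhb, overlapped (288, 187 and 194 and 262, 199 and 253 TPM for Pdha1). The respiratory chain list was lower at the median (-0.34), and of 47 tested subunits 4 fell, a share close to that of falls over all genes, and none rose. Rises in the respiratory list numbered 5 without the 5 libraries and 1 without the 2 GLUT3KO libraries. Falls in the respiratory list numbered 9 without the 5 libraries, 0 without the 2 GLUT3KO libraries, 8 to 14 under 3 of the 4 scalings, 0 in the fit of the 6 libraries, 1 without GLUT3KO replicate 3, WT replicate 2 or WT replicate 3, 2 without GLUT3KO replicate 1 and 11 without GLUT3KO replicate 2. The median was -0.14 without the 5 libraries and -0.01 without the 2 GLUT3KO libraries. In the pentose phosphate pathway 3 of 9 fell and 1 rose (median -0.43). Rises in the pentose list numbered 0 without the 2 GLUT3KO libraries, 0 under the 4 scalings, 0 in the fit of the 6 libraries and 0 without GLUT3KO replicate 1, GLUT3KO replicate 3, WT replicate 2 or WT replicate 3. Falls in the pentose list numbered 6 without the 5 libraries, 1 without the 2 GLUT3KO libraries and 6 under the 4 scalings. Prps2 and Prps1, which make the ribose donor for nucleotides, fell from 19.4 ± 4.42 to 10.5 ± 2.46 TPM and from 126 ± 9.66 to 92.4 ± 4.43 TPM (limma adjusted p = 0.00458 and 0.00393). The rise of G6pdx, the entry enzyme, was lost without any 1 of several libraries (limma adjusted p = 0.0618 without GLUT3KO replicate 1, 0.0513 without GLUT3KO replicate 3, 0.0705 without WT replicate 2 and 0.0582 without WT replicate 3). Prps2, Prps1 and G6pdx lost the call without the 2 GLUT3KO libraries (limma adjusted p = 0.0504 to 0.258), G6pdx after the GC and length correction (0.0674) and under at least 1 of the other scalings (0.118 to 0.534). G6pdx lost the call with another filter, pseudocount or set of libraries in the fit (limma adjusted p = 0.0517).

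Cytosolic acetyl-CoA is supplied from citrate by Acly and from acetate by Acss2. Acly was 400.3, 395 and 392 TPM in WT and 725, 604 and 709 TPM in GLUT3KO libraries, uniform in WT cells and without overlap (log2 change 0.77 ± 0.22 SE, limma adjusted p = 0.0128). Acss2 had a lower level than Acly in every library (3.18, 2.28 and 2.99 and 3.76, 4.54 and 6.59 TPM, log2 change 0.63 ± 0.19 SE, limma adjusted p = 0.0209). Its limma adjusted p was 0.116 without GLUT3KO replicate 3 and 0.098 without WT replicate 2. Slc25a1, which exports the citrate from mitochondria, was lower in each GLUT3KO library without passing (log2 change -0.49 ± 0.3 SE, limma adjusted p = 0.234). Of 20 tested genes of acetyl-CoA supply and histone acetylation 6 rose and none fell (median 0.35), a share of rises near that of all genes. Rises in the acetyl-CoA list numbered 3 without the 2 GLUT3KO libraries, 2 with voom and 1 after the GC and length correction. Falls in the acetyl-CoA list numbered 3 without the 5 libraries, 1 to 4 under the 4 scalings and 2 in the fit of the 6 libraries. Among histone acetyltransferases Kat2b (PCAF) rose 6.49-fold with 11.3, 6.33 and 8.78 TPM in WT and 58.1, 53.6 and 59.3 TPM in GLUT3KO libraries (log2 change 2.6 ± 0.24 SE, limma adjusted p = 1.08e-06). Ep300 and Crebbp, broadly acting enzymes of this kind, overlapped (50.6, 29.2 and 31.5 and 74.3, 44 and 61.4 TPM for Ep300). In lipid synthesis, which uses acetyl-CoA, members moved in both directions: of 15 genes of fatty acid synthesis 3 rose and 3 fell (median -0.15), and of 22 genes of cholesterol synthesis and uptake 3 rose and 3 fell (median 0.00). Rises in the fatty acid list numbered 6 without the 5 libraries, 1 without the 2 GLUT3KO libraries, 1 with voom, 0 after the GC and length correction and 5 without WT replicate 1. Falls in the fatty acid list numbered 5 without the 5 libraries, 1 without the 2 GLUT3KO libraries, 5 to 6 under 3 of the 4 scalings, 1 without a filter and 1 without GLUT3KO replicate 1, WT replicate 2 or WT replicate 3. Rises in the cholesterol list numbered 6 without the 5 libraries and 1 after the GC and length correction. Falls in the cholesterol list numbered 1 without the 2 GLUT3KO libraries and 5 to 10 under the 4 scalings. Elovl6, which elongates palmitate, fell from 2.41 ± 0.227 to 1.24 ± 0.273 TPM (log2 change -0.61 ± 0.14 SE, limma adjusted p = 0.00304). Idi1, of the isoprenoid pathway, fell from 37.7 ± 4.26 to 20.9 ± 2.06 TPM (log2 change -0.82 ± 0.17 SE, limma adjusted p = 0.0014). Sc5d, a late sterol enzyme, rose from 14.6 ± 4.13 to 32.7 ± 2.64 TPM (log2 change 1.14 ± 0.2 SE, limma adjusted p = 0.000566). Fasn, the fatty acid synthase, did not pass (log2 change -0.44 ± 0.29 SE, limma adjusted p = 0.268). Acly and Acss2 lost the call without the 2 GLUT3KO libraries (limma adjusted p = 0.167 to 0.253), after the GC and length correction (0.0698 to 0.109) and under at least 1 of the other scalings (0.101 to 0.195). Acss2 lost the call with another filter, pseudocount or set of libraries in the fit (limma adjusted p = 0.0731). Slc25a1, Ep300 and Fasn passed without the 5 libraries (limma adjusted p = 0.000908 to 0.0254), Slc25a1 and Fasn after the GC and length correction (0.000316 to 0.0133) and under at least 1 of the other scalings (0.0393 to 0.0488). Slc25a1 and Fasn passed with another filter, pseudocount or set of libraries in the fit (limma adjusted p = 0.0265 to 0.044) and Ep300 without GLUT3KO replicate 2 or WT replicate 1 (0.0176 to 0.0282).

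Genes of ribosome production fell or did not pass. Of 32 tested MYC targets and ribosome biogenesis genes 14 fell and none rose (median -0.66). Rises in the MYC list numbered 1 without GLUT3KO replicate 2 or WT replicate 1. Falls in the MYC list numbered 28 without the 5 libraries, 22 with voom and 22 after the GC and length correction. Rrp9, a protein of the particle that processes ribosomal RNA, was 260.0, 214 and 201 TPM in WT and 102, 61.7 and 92.3 TPM in GLUT3KO libraries (log2 change -1.41 ± 0.16 SE, limma adjusted p = 9.58e-06). Polr1b, a core subunit of RNA polymerase I, which transcribes ribosomal RNA, was 40.9, 47.3 and 49.3 and 13.4, 13.7 and 15.9 TPM (log2 change -1.61 ± 0.21 SE, limma adjusted p = 4.07e-05). Nhp2, a component of pseudouridylation particles, fell from 295 ± 43.3 to 126 ± 34.3 TPM (log2 change -1.24 ± 0.19 SE, limma adjusted p = 0.000124). Nop56, of methylation particles, fell from 320.4 ± 52.1 to 156 ± 30.9 TPM (log2 change -1.04 ± 0.16 SE, limma adjusted p = 0.00016). Ncl and Npm1, abundant nucleolar proteins, did not pass; Npm1 was 3833, 2414 and 2367 and 2054, 1213 and 1844 TPM, with replicate 1 highest in both genotypes (log2 change -0.75 ± 0.3 SE, limma adjusted p = 0.0648). MYC binds the E-box CACGTG, which was found, on both strands, in 11.9% of the 9360 windows of tested genes and in 7 of the 27 windows of this list (25.9%). Of these, 3 are among the 11 members that fell and have a window (Mybbp1a, Nop2 and Utp20). The calls of Nop2 and Utp20 were lost without GLUT3KO replicate 2 or WT replicate 1 (limma adjusted p = 0.0587 to 0.0628 and 0.0582 to 0.0609). Nop2 and Utp20 lost the call with another filter, pseudocount or set of libraries in the fit (limma adjusted p = 0.0816 to 0.0924). Npm1 passed without the 5 libraries (limma adjusted p = 5.04e-05), after the GC and length correction (0.000833) and under at least 1 of the other scalings (0.00176 to 0.0375).

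Of the 15 genes with the largest TPM differences among those that passed, 9 encode ribosomal proteins, for which no list was drawn up, and all 9 fell. A ranking by TPM difference favours abundant genes, and the share of all ribosomal protein genes that fell was not counted. All 9 calls were lost after quantile normalization. Those of Rpl7, Rpl8, Rpl41 and Rps12 were also lost without GLUT3KO replicate 1, GLUT3KO replicate 3, WT replicate 2 or WT replicate 3 (limma adjusted p = 0.0535 to 0.17). The 3 with the smallest adjusted p are given here. Rpl12 was 5693, 6804 and 7119 TPM in WT and 3716, 4468 and 3394 TPM in GLUT3KO libraries (log2 change -0.76 ± 0.16 SE, limma adjusted p = 0.0015). Rpl32 was 5714, 7178 and 6251 and 3669, 4392 and 3666 TPM (log2 change -0.71 ± 0.15 SE, limma adjusted p = 0.00174). Rpl14 was 3123, 3175 and 2843 and 1690.1, 1653 and 1738 TPM (log2 change -0.85 ± 0.12 SE, limma adjusted p = 5.01e-05). Ribosomal protein genes have many near-identical pseudogenes, so their counts are uncertain. Rpl12 and Rpl32 lost the call without the 2 GLUT3KO libraries (limma adjusted p = 0.114 to 0.117), Rpl12, Rpl32 and Rpl14 after the GC and length correction (0.107 to 0.194) and under at least 1 of the other scalings (0.06 to 0.14).

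Genes of folding in the endoplasmic reticulum rose or did not pass. Of 26 genes of the unfolded protein response 12 rose and none fell (median 0.65). Rises in the folding list numbered 25 without the 5 libraries, 7 without the 2 GLUT3KO libraries and 7 with voom. The 3 stress sensors of this compartment all rose: Ern1 (IRE1) was 23.4, 10.1 and 9.8 TPM in WT and 71.6, 54.4 and 77 TPM in GLUT3KO libraries (log2 change 2.25 ± 0.25 SE, limma adjusted p = 8.56e-06). Eif2ak3 (PERK) was 40.5, 26 and 30.01 and 92, 85.7 and 103 TPM (log2 change 1.53 ± 0.19 SE, limma adjusted p = 1.8e-05). Atf6 rose from 76.9 ± 25.7 to 145 ± 20.6 TPM (log2 change 0.95 ± 0.18 SE, limma adjusted p = 0.000987). Dnajb9, a chaperone that restrains IRE1, was 153, 115 and 94 and 465, 370.1 and 415 TPM (log2 change 1.8 ± 0.16 SE, limma adjusted p = 9.42e-07). Sel1l, a subunit of the machinery that removes misfolded proteins, rose from 126 ± 39.4 to 269.7 ± 27.1 TPM (log2 change 1.13 ± 0.17 SE, limma adjusted p = 0.000129). Xbp1 and Atf4, factors downstream of the sensors, overlapped (202, 235 and 277 and 255, 427 and 294 TPM for Xbp1). Hspa5 (BiP), an abundant chaperone of this compartment, was 4159, 3056 and 3071 and 4895, 4308 and 4803 TPM (log2 change 0.46 ± 0.16 SE, limma adjusted p = 0.0401), a call lost with several single libraries left out (limma adjusted p = 0.113 without GLUT3KO replicate 1, 0.111 without GLUT3KO replicate 3, 0.154 without WT replicate 2 and 0.146 without WT replicate 3). All cells had been kept in brefeldin A and monensin, agents that block secretion. Atf6 and Hspa5 lost the call without the 2 GLUT3KO libraries (limma adjusted p = 0.0868 to 0.413), Hspa5 after the GC and length correction (0.312) and under at least 1 of the other scalings (0.197 to 0.438). Hspa5 lost the call with another filter, pseudocount or set of libraries in the fit (limma adjusted p = 0.0536 to 0.112). Xbp1 passed without the 5 libraries (limma adjusted p = 0.000215).

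The promoters of 3 of these genes are shown with the ER stress response element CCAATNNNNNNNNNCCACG in capitals, searched on both strands. It is the motif read by ATF6 and by XBP1, and it was in 17 of 9360 windows of tested genes (0.182%) and in 9 of the 22 windows of this list (40.9%). The windows lie at chr2:34771840-34772139, chr15:88819396-88819695 and chr14:118937682-118937981, all on the plus strand.
Hspa5: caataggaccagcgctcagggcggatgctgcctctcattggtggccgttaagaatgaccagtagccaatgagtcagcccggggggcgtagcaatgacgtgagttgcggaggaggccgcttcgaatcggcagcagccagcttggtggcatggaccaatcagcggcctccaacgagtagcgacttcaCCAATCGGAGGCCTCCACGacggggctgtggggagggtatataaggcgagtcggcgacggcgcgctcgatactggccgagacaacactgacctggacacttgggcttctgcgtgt
Creld2: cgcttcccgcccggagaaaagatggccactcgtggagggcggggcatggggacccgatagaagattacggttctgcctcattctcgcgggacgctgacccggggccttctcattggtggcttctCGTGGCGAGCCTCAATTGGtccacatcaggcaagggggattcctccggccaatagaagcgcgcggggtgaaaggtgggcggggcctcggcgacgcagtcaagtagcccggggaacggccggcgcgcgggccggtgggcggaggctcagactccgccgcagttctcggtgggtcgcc
Dnajc3: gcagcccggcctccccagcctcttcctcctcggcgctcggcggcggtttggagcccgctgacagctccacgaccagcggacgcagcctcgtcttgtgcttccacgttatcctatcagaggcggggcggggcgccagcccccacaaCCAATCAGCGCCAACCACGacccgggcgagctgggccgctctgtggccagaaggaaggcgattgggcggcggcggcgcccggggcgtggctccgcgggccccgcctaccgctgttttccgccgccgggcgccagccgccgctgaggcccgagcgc
The match begins 65 bases before the start in Hspa5, 126 in Creld2 and 105 in Dnajc3. Creld2, a folding factor, rose from 77.7 ± 13.5 to 119.6 ± 7.52 TPM (log2 change 0.63 ± 0.14 SE, limma adjusted p = 0.00236). Dnajc3, a cochaperone, rose from 79.2 ± 24.9 to 164 ± 35.1 TPM (log2 change 1.07 ± 0.24 SE, limma adjusted p = 0.00302). Within the list 4 of the 11 members that rose and had a window held the element (these 3 and Derl3), and so did 5 members that did not pass (Calr, Canx, Hsp90b1, Pdia6 and Syvn1), so members with it did and did not pass. Dnajc3 lost the call without the 2 GLUT3KO libraries (limma adjusted p = 0.131) and Creld2 under at least 1 of the other scalings (0.102).

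Targets of NRF2, the factor of the antioxidant response, rose in 9 of 16 cases and none fell (median 0.79).  Nfe2l2, which encodes NRF2, was 50.8, 30.1 and 28.8 TPM in WT and 165, 114 and 136 TPM in GLUT3KO libraries (log2 change 1.92 ± 0.24 SE, limma adjusted p = 2.1e-05). Srxn1, which repairs peroxiredoxins, showed the largest rise of the list at 4.18, 5.23 and 4.27 TPM in WT and 53.7, 71.6 and 57.6 TPM in GLUT3KO libraries (13.4-fold, log2 change 3.47 ± 0.2 SE, limma adjusted p = 1.03e-08). Gsr, which regenerates glutathione, was 34.5, 27.6 and 28.9 and 90.6, 89.2 and 95.8 TPM (log2 change 1.57 ± 0.21 SE, limma adjusted p = 3.52e-05). Nqo1, a quinone reductase, was 7.25, 5.27 and 3.3 and 14.2, 25 and 20.1 TPM (log2 change 1.74 ± 0.43 SE, limma adjusted p = 0.00559). Osgin1 rose from 0.653 ± 0.236 to 4.42 ± 1.0 TPM (log2 change 1.71 ± 0.18 SE, limma adjusted p = 4.43e-06). Slc7a11, which imports cystine for glutathione, rose from 4.31 ± 1.28 to 10.3 ± 1.0 TPM (log2 change 1.11 ± 0.17 SE, limma adjusted p = 0.000137). Others of the same pathway overlapped, among them the 2 subunits of the enzyme that begins glutathione synthesis, Gclc and Gclm, and Txnrd1 (43.1, 25.8 and 27 and 39.2, 27.8 and 34.3 TPM for Gclc, 18, 19.5 and 21 and 21.2, 20.2 and 16.5 TPM for Gclm). The Srxn1 window (chr2:152105274-152105573, plus strand) is shown with the NRF2 and small MAF site TGANTCAGC in capitals, 45 bases before the start.
Srxn1: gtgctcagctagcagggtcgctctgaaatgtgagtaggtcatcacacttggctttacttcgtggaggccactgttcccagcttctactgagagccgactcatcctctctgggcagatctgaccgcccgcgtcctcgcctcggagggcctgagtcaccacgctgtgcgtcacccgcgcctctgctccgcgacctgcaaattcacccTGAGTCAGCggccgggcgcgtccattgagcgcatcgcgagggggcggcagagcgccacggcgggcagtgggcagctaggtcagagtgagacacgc
This site contains the AP-1 motif TGANTCA. It was in 1.21% of the windows of tested genes and in 3 of 13 of this list (23.1%: Srxn1, Osgin1 and Prdx1), and the looser core TGACNNNGC in 16.7% and in 5 of 13 (38.5%).

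Amino acid transporters and hypoxia genes were partly higher. Of 12 transporters 6 rose (median 0.52). Rises in the transporter list numbered 11 without the 5 libraries, 3 with voom and 1 after the GC and length correction. Falls in the transporter list numbered 1 after the GC and length correction. Slc6a6, the taurine carrier, was 132, 128 and 127 and 221, 219 and 226 TPM (log2 change 0.78 ± 0.14 SE, limma adjusted p = 0.00054). Slc38a1, a glutamine carrier, rose from 91.7 ± 12.7 to 152 ± 7.31 TPM (log2 change 0.73 ± 0.14 SE, limma adjusted p = 0.000856). Of 17 genes of the ATF4 response 5 rose (median 0.27). Rises in the ATF4 list numbered 12 without the 5 libraries, 0 without the 2 GLUT3KO libraries, 1 to 3 under 3 of the 4 scalings, 3 without a filter or in the fit of the 6 libraries, 1 without GLUT3KO replicate 1, WT replicate 2 or WT replicate 3, 2 without GLUT3KO replicate 3 and 3 without GLUT3KO replicate 2. Falls in the ATF4 list numbered 1 after median-ratio scaling. Atf4 itself did not pass (log2 change 0.06 ± 0.4 SE, limma adjusted p = 0.928). Among 17 hypoxia targets outside glycolysis 8 rose and 1 fell (median 0.42). Rises in the hypoxia list numbered 5 with voom. Falls in the hypoxia list numbered 3 without the 5 libraries, 2 to 3 under the 4 scalings, 2 without GLUT3KO replicate 2 and 3 without WT replicate 1. Mxi1, an antagonist of MYC, was 19.1, 17.4 and 20.5 TPM in WT and 53.2, 52.3 and 52.4 TPM in GLUT3KO libraries (log2 change 1.43 ± 0.16 SE, limma adjusted p = 5.87e-06). P4ha2, a collagen hydroxylase, was 23.2, 14 and 16.1 and 57.6, 36.7 and 69.4 TPM (log2 change 1.55 ± 0.21 SE, limma adjusted p = 5.01e-05). Kdm3a, a histone demethylase, rose from 31.2 ± 7.64 to 75 ± 6.87 TPM (log2 change 1.26 ± 0.17 SE, limma adjusted p = 5.06e-05). Vegfa, the classical target, overlapped (49.7, 34.4 and 30.6 and 44.5, 28.8 and 39.7 TPM, limma adjusted p = 0.973). Ankrd37 fell from 5.0 ± 2.25 to 0.77 ± 0.0978 TPM (log2 change -1.69 ± 0.26 SE, limma adjusted p = 0.000172). Slc6a6 and Slc38a1 lost the call after the GC and length correction (limma adjusted p = 0.0758 to 0.555). Atf4 passed without the 5 libraries (limma adjusted p = 0.0032).

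Cell cycle genes could not be given a firm direction. Of 24 genes of the G2 and M phases 6 rose (median 0.95). Rises in the G2 and M list numbered 0 without the 2 GLUT3KO libraries, 0 to 1 under the 4 scalings, 1 without a filter, 0 without GLUT3KO replicate 1, GLUT3KO replicate 3, WT replicate 2 or WT replicate 3, 1 without GLUT3KO replicate 2 and 13 without WT replicate 1. Mki67, a proliferation marker, was 47.6, 7.96 and 11.7 TPM in WT and 104, 38.6 and 61.4 TPM in GLUT3KO libraries, with WT replicate 1 inside the range of the GLUT3KO libraries (log2 change 1.85 ± 0.71 SE, limma adjusted p = 0.0583). Of 25 S phase genes 2 rose, among them Ccne2, a cyclin of S phase entry (log2 change 0.79 ± 0.26 SE, limma adjusted p = 0.0301), and 1 fell, the replication helicase subunit Mcm3 (log2 change -0.62 ± 0.21 SE, limma adjusted p = 0.0317). Both calls were lost with several single libraries left out. The limma adjusted p of Ccne2 was 0.124 without GLUT3KO replicate 1, 0.053 without GLUT3KO replicate 3, 0.0732 without WT replicate 2 and 0.121 without WT replicate 3. That of Mcm3 was 0.0509 without GLUT3KO replicate 1, 0.0841 without GLUT3KO replicate 2, 0.0722 without GLUT3KO replicate 3, 0.0947 without WT replicate 1 and 0.0662 without WT replicate 3. Rises in the S phase list numbered 1 without the 2 GLUT3KO libraries, 1 under 3 of the 4 scalings, 1 without a filter and 1 without GLUT3KO replicate 1, GLUT3KO replicate 3, WT replicate 2 or WT replicate 3. Falls in the S phase list numbered 0 without the 5 libraries, 0 without the 2 GLUT3KO libraries, 4 to 8 under the 4 scalings, 0 without a filter, 2 in the fit of the 6 libraries and 0 without GLUT3KO replicate 1, GLUT3KO replicate 2, GLUT3KO replicate 3, WT replicate 1 or WT replicate 3. Mcm3 lost the call without the 5 libraries (limma adjusted p = 0.11), Ccne2 and Mcm3 without the 2 GLUT3KO libraries (0.132 to 0.342) and Ccne2 under at least 1 of the other scalings (0.0766 to 0.162). Ccne2 and Mcm3 lost the call with another filter, pseudocount or set of libraries in the fit (limma adjusted p = 0.051 to 0.0514). Mki67 passed without the 5 libraries (limma adjusted p = 0.0118) and Mki67 without GLUT3KO replicate 2 or WT replicate 1 (0.0107 to 0.0478).

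Several BH3-only genes of cell death rose. Bcl2l11 (BIM), a BH3-only initiator of apoptosis that kills T cells deprived of cytokines, was 0.825, 0.915 and 0.9005 TPM in WT and 24.2, 22.7 and 17.8 TPM in GLUT3KO libraries, a rise of 24.5-fold (log2 change 3.57 ± 0.17 SE, limma adjusted p = 1.73e-09). Of the other BH3-only genes Bmf rose, with 1.84, 1.41 and 1.76 and 6.29, 10.9 and 12.3 TPM (log2 change 1.98 ± 0.27 SE, limma adjusted p = 5.6e-05). Pmaip1 (NOXA) rose from 47.2 ± 4.55 to 171 ± 10.9 TPM (log2 change 1.84 ± 0.24 SE, limma adjusted p = 3.18e-05). Bid fell (18, 22.2 and 25.8 and 5.54, 6.28 and 6.57 TPM, log2 change -1.68 ± 0.18 SE, limma adjusted p = 6.17e-06). The survival genes Bcl2 and Mcl1 rose less (log2 change 0.77 ± 0.16 SE, limma adjusted p = 0.00176 and log2 change 0.66 ± 0.17 SE, limma adjusted p = 0.0066). Bcl2l1 overlapped (87.2, 70.8 and 69.4 and 72.9, 44.8 and 56.5 TPM). Over 16 tested members of the family 6 rose and 2 fell (median 0.00). Rises in the BCL-2 list numbered 3 without the 2 GLUT3KO libraries. Falls in the BCL-2 list numbered 5 without the 5 libraries, 1 without the 2 GLUT3KO libraries, 4 to 6 under the 4 scalings, 1 without a filter or in the fit of the 6 libraries, 1 without GLUT3KO replicate 1, GLUT3KO replicate 3, WT replicate 2 or WT replicate 3 and 4 without GLUT3KO replicate 2. Among 18 p53 targets 8 rose and 1, Plk2, fell (limma adjusted p = 0.0132; 0.0556 without GLUT3KO replicate 2 and 0.054 without WT replicate 1; median of the list 0.33). Rises in the p53 list numbered 5 after the GC and length correction. Falls in the p53 list numbered 5 without the 5 libraries, 3 to 4 under the 4 scalings, 0 in the fit of the 6 libraries and 0 without GLUT3KO replicate 2 or WT replicate 1. Perp was 6.11, 12 and 14.1 and 86.5, 114 and 84.4 TPM (log2 change 3.09 ± 0.22 SE, limma adjusted p = 1.15e-07). Fas, the death receptor, rose from 10.4 ± 2.25 to 32.1 ± 4.2 TPM (log2 change 1.55 ± 0.17 SE, limma adjusted p = 6.17e-06). Cdkn1a and Mdm2, well-known targets, overlapped (338, 577 and 510.5 and 486, 671 and 597 TPM for Cdkn1a, 83, 71 and 70.3 and 78.4, 59.1 and 72.5 TPM for Mdm2). Bcl2 and Mcl1 lost the call without the 2 GLUT3KO libraries (limma adjusted p = 0.0596 to 0.259), after the GC and length correction (0.196 to 0.313) and Mcl1 under at least 1 of the other scalings (0.0931). Plk2 lost the call with another filter, pseudocount or set of libraries in the fit (limma adjusted p = 0.0798). Bcl2l1 and Mdm2 passed without the 5 libraries (limma adjusted p = 0.000378 to 0.0486), after the GC and length correction (9.66e-05 to 0.0163) and Bcl2l1 under at least 1 of the other scalings (0.0101 to 0.0228).

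Interferon-inducible and antigen presentation genes rose in part. Of 19 genes of the type I interferon response 7 rose and none fell (median 0.38). Falls in the interferon list numbered 1 with voom and 2 after the GC and length correction. Zbp1, a sensor of nucleic acids, was 4.89, 3.8 and 4.59 TPM in WT and 29.8, 35.1 and 30.5 TPM in GLUT3KO libraries (log2 change 2.6 ± 0.16 SE, limma adjusted p = 1.96e-08). Ifih1 (MDA5) was 12.1, 8.84 and 8.77 and 69.3, 28.4 and 35.9 TPM (log2 change 1.97 ± 0.25 SE, limma adjusted p = 2.82e-05). Classical members such as Isg15, Ifit2 and Rsad2 did not pass (1.98, 3.84 and 4.61 and 2.64, 8.5 and 4.94 TPM for Isg15), and Irf7 stayed under 1 TPM. In antigen presentation 6 of 17 rose (median 0.34). Nlrc5, the activator of MHC class I genes, was 3.54, 2.93 and 4.11 and 11, 15.1 and 13.2 TPM (log2 change 1.64 ± 0.16 SE, limma adjusted p = 2.58e-06). H2-D1, a class I heavy chain, rose from 499.6 ± 35.5 to 1209.6 ± 144 TPM (log2 change 1.27 ± 0.29 SE, limma adjusted p = 0.0036). B2m, their shared light chain, was 768, 1143 and 1239 and 1769.7, 3929.7 and 2165 TPM (log2 change 1.26 ± 0.3 SE, limma adjusted p = 0.00465). Rises in the antigen list numbered 2 with voom. Falls in the antigen list numbered 1 after the GC and length correction. Class I heavy chains are close copies of each other, and the counting of shared reads is not stated here. B2m lost the call under at least 1 of the other scalings (limma adjusted p = 0.0544). Isg15 passed without the 5 libraries (limma adjusted p = 0.00663).

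The same loss was also measured in the 6 libraries with acetate, which the comparison above does not use except for the spread. There 4329 of 14229 genes (30.4%) differed between GLUT3KO and WT cells. Of the 4753 genes that passed without acetate 3438 passed in the same direction with it (72.3% of these and 79.4% of those with acetate), and 8 passed in the opposite direction. Of the 1648 rises of at least 1 on the log2 scale 1404 rose again, and of the 300 such falls 219 fell again. Slc2a3 was lower with acetate too (log2 change -1.48, limma adjusted p = 0.000884). Ifng (log2 change 4.0, limma adjusted p = 1.22e-06), and likewise Spp1 (5.29, 5.65e-11), Il7r (4.42, 5.65e-11) and Bcl2l11 (3.96, 9.22e-10) rose with acetate too, and Il2 (-2.38, 4.63e-05) fell. Il17a did not pass with acetate (1792 ± 327 TPM in the WT libraries and 1488 ± 115 TPM in the GLUT3KO libraries, mean ± SD, n = 3 each; log2 change -0.25, limma adjusted p = 0.676). The difference between its changes did not pass either (1.94, limma adjusted p = 0.178), although it did without the 5 libraries. The difference of the changes passed for 110 of 14229 genes (0.773%), a count that was 70 without GLUT3KO replicate 1, 60 without GLUT3KO replicate 3, 51 without WT replicate 2 and 66 without WT replicate 3. Among them was Il17f (log2 change -2.84 without and -1.11 with acetate, difference 1.73, limma adjusted p = 0.0176; 0.0527 without GLUT3KO replicate 3). Another was Il23r (-1.05 and -2.15, difference -1.09, limma adjusted p = 0.0268), which did not pass without GLUT3KO replicate 2, GLUT3KO replicate 3, WT replicate 1 or WT replicate 2 (highest limma adjusted p = 0.0819).

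**Figure D5:**
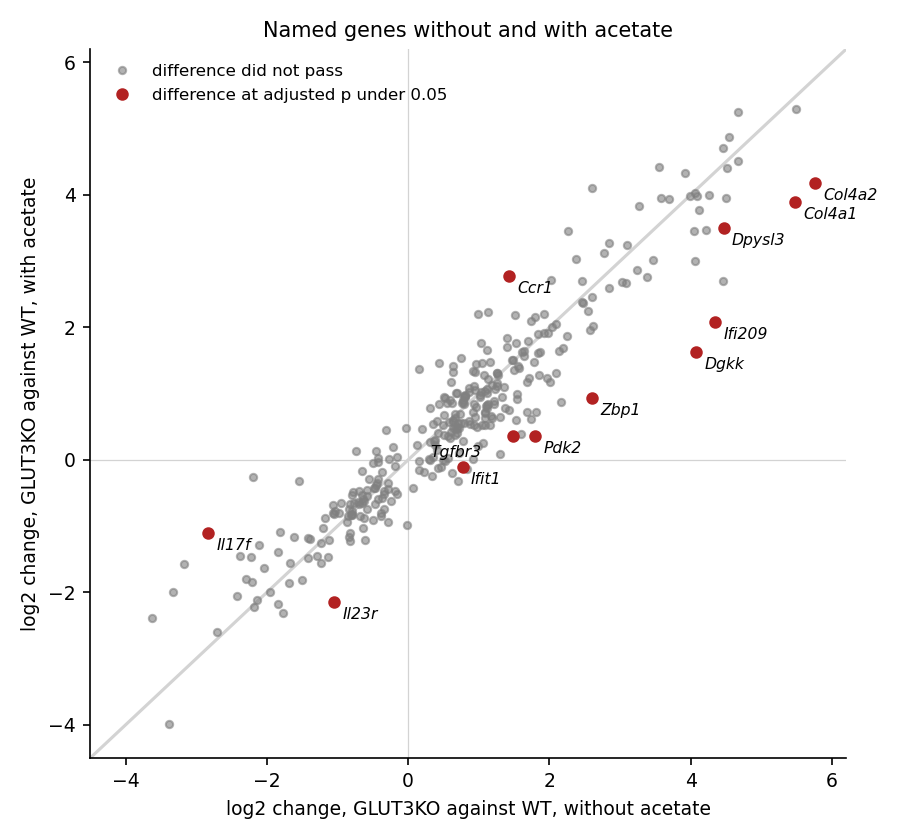
Log2 change of TPM + 1 between GLUT3KO and WT without acetate (x axis) and with acetate (y axis) for the named genes. Red points are those whose 2 changes differed at an adjusted p under 0.05, and the diagonal marks equal changes. Il17f lies above the diagonal and Il23r, Dgkk, Col4a1 and Col4a2 below it. Genes were chosen on the untreated values, so a shift toward smaller values with acetate is favoured by the choice.

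Compared with untreated cells that lack ACLY, an enzyme farther along the route from glucose to acetyl-CoA, GLUT3KO cells differed in 5746 of 14229 genes (40.4%). Il17a was low in both knockouts (145 ± 50.8 TPM in GLUT3KO and 104 ± 60.04 TPM in ACLYKO cells, log2 difference 0.64, limma adjusted p = 0.217). Cxcl3 was low in both too (9.32 ± 1.8 TPM and 9.16 ± 4.36 TPM, limma adjusted p = 0.775). A missed threshold does not show that the knockouts act alike. Il2 was 434 ± 96.4 TPM in GLUT3KO and 13290.0 ± 5778 TPM in ACLYKO cells (log2 difference -4.87, limma adjusted p = 2.79e-08). Ifng was 877 ± 297 TPM and 155 ± 58.3 TPM (log2 difference 2.51, limma adjusted p = 7e-05). Col4a1 was 71.2 ± 25.3 TPM and 0.281 ± 0.0928 TPM (log2 difference 5.76, limma adjusted p = 1.07e-10). Il7r was 121 ± 10.9 TPM and 6.97 ± 0.48 TPM (log2 difference 3.93, limma adjusted p = 9.97e-11), and Bcl2l11 21.6 ± 3.36 TPM and 1.01 ± 0.171 TPM (log2 difference 3.48, limma adjusted p = 1.7e-09). Cd5l, nearly lost in GLUT3KO cells, was 92.6 ± 23.5 TPM in ACLYKO cells (log2 difference -5.49, limma adjusted p = 1.59e-09). ACLYKO replicate 1 stood farthest out of all libraries on the within-group axis (90.2).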

How the data were processed

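Naive T cells were cultured under Th17 conditions, and RNA was sequenced from 18 libraries in 6 groups of 3, grouped by their labels. The authors deposited 1 table of TPM with exon lengths (2 other kinds of value per gene: a share of transcripts and a length in bases). Every library sums to 1000000 TPM. Per the submitters' processing notes, the tools were STAR 2.7.2b, featureCounts 1.6.4 of Subread, bcl2fastq 2.20.0.422, DESeq2 and cutadapt, on GRCm38.p6. The role of each, the trimming settings, the strand setting and the treatment of reads that match several places are not given in the sources used here. All 45703 gene IDs were found in the RefSeq table of GRCm38.p6, and 45697 had the same start and end. The table holds 0 mitochondrial protein-coding genes, so the respiratory chain is described by its nuclear genes.

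Genes that reached 1 TPM in 3 or more libraries were tested with limma 3.58.1 in R 4.3.3 on log2(TPM + 1), with trend and robust variance, all 18 libraries as 6 group means and 12 residual degrees of freedom, and Benjamini-Hochberg adjustment over 14229 genes at 0.05. A change on this scale understates that of low genes. The procedure was tested on simulated data. Reads recovered from TPM and exon length gave the depth, on which the precision of low values rests, and an alternative with limma's voom. Other alternatives were a pseudocount of 0.1, no filter, a minimum of 5 TPM, median-ratio and quantile scaling, a fit of the 6 libraries alone, a replicate block, libraries left out and, chosen after seeing the data, a correction for each library's trend in GC content and length (13484 genes). Replicate numbers were not used to pair the libraries in the main fit.

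Members and gene lists were chosen with earlier results of these data known. Named were a short list of transporters, cytokines and lineage factors, up to 8 members of each list by smallest adjusted p, members needed to say what did not pass, the 20 largest rises and falls on the log2 scale without overlap and with a mean of at least 5 TPM in the higher group (without gene models, pseudogenes and receptor segments), and the 15 largest changes in TPM. Hspa5, Dnajc3, Derl3, Eno1, Nop2, Utp20, Runx3, Plk2, Lum, Dcn and Epcam were named after their values were seen. Values of some genes that the rule named are not reported here. Promoter windows are RefSeq's for GRCm38.p6, matched by gene ID for 9360 tested genes.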

Additional observations from a re-analysis of the deposited data

Results flagged for a closer look

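Each of the 12 results below was singled out because the change with loss of GLUT3 differed between the acetate and the untreated cultures in limma's test of that difference, out of 330 genes named by rule. The genes were chosen on the untreated values, which favours smaller changes with acetate, and no explanation was tested. Groups of 3 were not examined for single outlying libraries.

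The rise was smaller with acetate for most of these genes. Dgkk, a diacylglycerol kinase, rose by 4.08 on the log2 scale without and 1.62 with acetate (difference -2.46, limma adjusted p = 0.00195). Zbp1 rose by 2.6 and 0.93 (difference -1.66, limma adjusted p = 0.00265), the 1 gene of the 12 whose difference passed in all 15 alternatives run for it. Ifi209 rose by 4.34 and 2.08 (difference -2.26, limma adjusted p = 0.00885), and the other interferon-inducible gene, Ifit1, had changes of 0.77 and -0.11 (difference -0.88, limma adjusted p = 0.0136). Pdk2 changed by 1.8 and 0.36 (difference -1.45, limma adjusted p = 0.0107), and Dpysl3 by 4.47 and 3.5 (difference -0.97, limma adjusted p = 0.0156; 0.0589 without WT replicate 2).

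The collagen pair moved alike. Col4a1 rose by 5.48 and 3.89 (difference -1.59, limma adjusted p = 0.0198; up to 0.0687 without WT replicate 2 or WT replicate 3), and Col4a2 by 5.76 and 4.18 (difference -1.58, limma adjusted p = 0.0297; up to 0.0977 without GLUT3KO replicate 1, GLUT3KO replicate 3, WT replicate 2 or WT replicate 3). Tgfbr3 changed by 1.49 and 0.36 (difference -1.13, limma adjusted p = 0.0346), and its difference did not pass without any 1 of the 6 untreated libraries (0.0586 to 0.103).

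In the other genes acetate cultures showed the larger change or a smaller fall. Ccr1 rose by 1.43 without and 2.77 with acetate (difference 1.34, limma adjusted p = 0.00885). Il23r changed by -1.05 and -2.15 (difference -1.09, limma adjusted p = 0.0268). Il17f changed by -2.84 and -1.11 (difference 1.73, limma adjusted p = 0.0176).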

How the results depend on the processing

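For untreated GLUT3KO against WT cells, 4753 genes passed, and the count was 3888 to 5080 across other settings of pseudocount, filter, scaling, samples in the fit or correction. Leaving out single libraries gave 3458 (without WT replicate 2) to 5204 (without WT replicate 1). It was 7578 without the 5 libraries and 2408 without the 2 GLUT3KO libraries among them; the cause was not tested, apart from the smaller number of libraries in the latter. In a fit of the 6 libraries alone 4268 genes passed, and 6283 did with a replicate block added to that fit. The residuals of same-numbered WT and GLUT3KO libraries correlated at 0.721 and 0.622 for replicates 1 and 2 and at -0.354 for replicate 3. Of the 6 libraries 3 correlated best with their own number. Whether same-numbered libraries share a batch was not tested. Without the 5 libraries 9350 genes passed with acetate (4329 in all libraries). Against ACLYKO cells 3452 genes passed without the 2 GLUT3KO libraries (5746 in all). The difference between acetate and untreated cultures (110 genes) was the least stable count: 21 with a pseudocount of 0.1, 171 without a filter, 55 with at least 5 TPM, 66 after quantile normalization, 33 with voom, 454 without the 5 libraries, 26 without the 2 GLUT3KO libraries, and 51 to 103 without single libraries. Of 276 named genes that passed 161 did so in every alternative run for them and 115 lost the call in at least 1, most often without the 2 GLUT3KO libraries (81) or after the GC and length correction (58); 73 of 108 that did not pass did so in at least 1. That correction turned the sign of Pfkfb2 (-0.055), Sirt1 (-0.055), Slc7a1 (-0.022), Vldlr (-0.12), Pdgfrb (-0.39) and Smad2 (-0.46), and leaving out the 5 libraries turned Trbc1 (0.32). Depth limits genes near 1 TPM, where few reads carry a value.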
